A study of Mus musculus with 12 samples.

Results

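The comparison described here is that of mouse liver 2 h after lipopolysaccharide (LPS) with untreated mouse liver. It was chosen as all liver libraries of the series, 3 labelled LPS for 2 h and 3 labelled untreated, which are 6 of its 12 libraries. The remaining 6 are cultured macrophages and were not used. All animals were C57BL/6, and neither liver group carried an engineered allele by the labels. The sources used here do not give the dose and route of the LPS, any injection of vehicle, or the age and sex of the mice. Every library held reads of Xist (460 to 823 CPM) and 0 counts of the Y-linked genes Ddx3y, Eif2s3y, Kdm5d and Uty. Nothing in the labels says that the libraries of a group came from separate animals, so the p-values below measure the spread between these samples. Polyadenylated RNA of whole liver was sequenced, and 13869 of 49585 gene IDs passed the filter on low counts and were tested.

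LPS is a component of the outer membrane of Gram-negative bacteria. It is carried by LPS-binding protein to CD14 and then to toll-like receptor 4 with its partner MD-2. The receptor signals through the adaptor MyD88 to the transcription factors NF-kB and AP-1, and through the adaptor TRIF to IRF3 and the type I interferons, whose receptor acts through STAT2 and IRF9. In liver the resident macrophages (Kupffer cells), the endothelium and the hepatocytes all sense LPS or the cytokines that follow it, and hepatocytes answer with the acute phase response, a change in the plasma proteins they secrete.

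The promoters of 8 genes that rose show the letters through which these factors are known to act, and they are printed because the responses below are grouped by those factors. Egr1, which was chosen with them and also rose, gave no match and is not printed. The sequences are from RefSeq on GRCm38.p6, within the window from 250 bases before to 50 bases after the annotated start, and read 5′ to 3′ on the strand of the gene. Capitals mark every match to one of 4 motifs between the first and the last base shown in capitals. These are the NF-kB consensus, the core of the interferon-stimulated response element (ISRE, GAAA, any 2 bases, then GAAA again), the gamma-activated site (GAS, TTCNNNGAA) and the AP-1 site (TGANTCA), searched on both strands. No 2 of the printed matches overlap. In a check of orientation, the last 25 bases of the window lay in a transcript of the same gene for 7 of 10 promoters checked.
Nfkbia, chr12:55492659-55492684, minus strand, 1 NF-kB site: actggcttGGAAATTCCCcgcgcctg
Tnfaip3, chr10:19015411-19015554, minus strand, 1 AP-1 site and 2 NF-kB sites: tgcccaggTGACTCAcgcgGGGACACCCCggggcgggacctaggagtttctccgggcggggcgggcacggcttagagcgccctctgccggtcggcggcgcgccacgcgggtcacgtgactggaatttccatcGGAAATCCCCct
Cxcl10, chr5:92348949-92349110, minus strand, 1 ISRE core, 2 NF-kB sites and 1 AP-1 site: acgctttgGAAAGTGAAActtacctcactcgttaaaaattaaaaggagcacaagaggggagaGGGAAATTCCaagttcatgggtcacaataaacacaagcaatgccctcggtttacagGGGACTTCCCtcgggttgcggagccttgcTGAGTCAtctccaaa
Irf1, chr11:53769916-53770013, plus strand, 1 GAS and 1 NF-kB site: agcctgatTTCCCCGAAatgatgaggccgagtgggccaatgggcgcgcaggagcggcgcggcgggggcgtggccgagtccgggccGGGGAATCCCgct
Ifit1, chr19:34640777-34640821, plus strand, 2 ISRE cores: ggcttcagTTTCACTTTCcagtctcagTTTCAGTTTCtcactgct
Gbp2, chr3:142620553-142620621, plus strand, 1 AP-1 site and 1 ISRE core: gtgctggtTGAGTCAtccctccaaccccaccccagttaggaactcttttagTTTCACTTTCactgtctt
Saa3, chr7:46715784-46715809, minus strand, 1 ISRE core: tatcttctGAAAGAGAAAttatgggt
Icam1, chr9:21015890-21015914, plus strand, 1 GAS: cgcgaggtTTCCCGGAAagtggccc

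These genes spanned the groups below. For Nfkbia, Tnfaip3, Irf1, Ifit1, Gbp2 and Icam1 the log2 fold changes were 2.7 (SE 0.22), 7.24 (SE 0.39), 3.82 (SE 0.29), 8.26 (SE 0.50), 7.42 (SE 0.38) and 4.82 (SE 0.34), with adjusted p between 5.12e-06 and 3.22e-05. The promoter windows of all genes gave the frame for such matches. The NF-kB consensus stood in 12.3% of 301 windows of genes called at least 16-fold higher, in 6.71% of 2997 windows of all genes called higher, and in 4.96% of 7083 windows of genes not called. The ISRE core stood in 16.3%, 6.11% and 2.78% of the same windows, the GAS in 13%, 9.48% and 6.61%, and the AP-1 site in 15.3%, 7.24% and 5.17%. For comparison, the cAMP response element TGACGTCA stood in 1.66%, 3.04% and 2.87%. Genes called at least 4-fold lower (672 windows) carried the NF-kB consensus in 3.87%, the ISRE core in 2.53%, the GAS in 5.21% and the AP-1 site in 3.87%. Over all 32851 windows of the table, expressed or not, the shares were 4.51%, 3.44%, 8.30% and 7.81%. By gene list, only windows of members called higher were counted, and a gene could have more than 1 window. The ISRE core was in 9 of 11 windows of the interferon-inducible GTPases (81.8%) and in 15 of 32 of the antiviral genes (46.9%). The NF-kB consensus was in 12 of 29 windows of the NF-kB system itself (41.4%) and in 4 of 8 of the CXC chemokines. These are matches of letters, not measured binding, and genes without a match in this window may have one elsewhere.

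**Figure D1:**
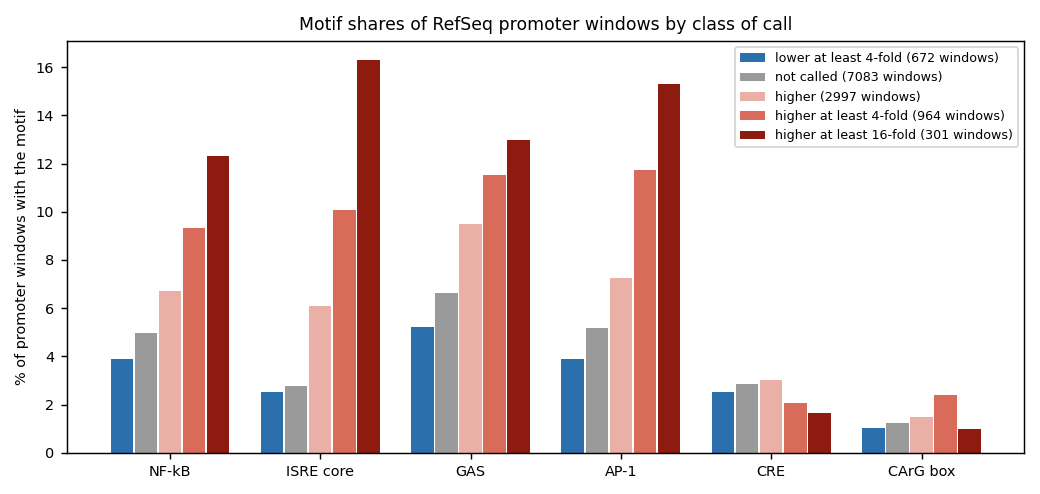
Share of RefSeq promoter windows (percent, vertical axis) that hold each of 6 motifs, for genes grouped by their call in the LPS livers. The shares of windows with the ISRE core go from 2.78% among genes not called to 16.3% among genes at least 16-fold higher, while those of the cAMP response element go from 2.87% to 1.66%.

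The libraries held 17322770 to 20913964 counts in genes, with a count in 19132 to 20423 genes. The groups separated along the first principal component of log2 CPM, which held 78.3% of the variance. The second (8.63%) set untreated replicate 3 apart from the other untreated livers. Mitochondrially encoded transcripts took 5.06% to 5.45% of the counts of untreated livers and 9.65%, 6.24% and 6.21% of those after LPS. Below, the values of a gene are given in the order of replicates 1, 2 and 3, in counts per 1e6 counts (CPM) on library sizes scaled by TMM, a normalization that assumes that most genes do not change. With library totals in place of TMM the median log2 fold change of all tested genes moved from -0.06 to -0.49, so that with TMM 51.3% of the called genes were higher and with library totals 26.8%. Directions are therefore relative to the bulk of genes, and a list whose direction turned between the scalings is marked. In bulk liver, fewer cells of a type and less RNA per cell cannot be told apart.

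By the quasi-likelihood test of edgeR with Benjamini-Hochberg adjustment over all tested genes, 3227 genes rose and 3060 fell at an adjusted p under 0.05. That is 23.3% and 22.1% of the tested genes (45.3% in either direction), and these shares are the background for each list below. At least 4-fold changes were called for 7.84% in the higher and 5.14% in the lower direction, and the 3 LPS values did not overlap the 3 untreated values for 57.8% of tested genes. The extremes leaned upward, with 351 genes at least 16-fold higher and 88 at least 16-fold lower, and 118 and 17 at least 64-fold. Of the 351, 204 averaged under 1 CPM in untreated liver. Of the 88, 76 averaged under 1 CPM after LPS. Genes that rose at least 16-fold and also stood above 1000 CPM on average after LPS numbered 20. They were the chemokines Cxcl10 and Cxcl9, the serum amyloids Saa1, Saa2 and Saa3, the antiviral genes Mx1, Mx2, Ifit1, Ifit2, Ifit3, Rsad2, Cmpk2, Parp14 and Rnf213, the GTPase gene Gbp11, and Lcn2, Steap4, Tifa, Rnd1 and Cep85. Of genes that fell, 3 had passed 1000 CPM untreated: Pck1 of glucose production, Cps1 of the urea cycle and the amino acid transporter gene Slc38a4. The call of Cps1 was lost without LPS replicate 1 (adjusted p = 0.0685) or LPS replicate 2 (0.0771), and that of Slc38a4 without LPS replicate 2 (adjusted p = 0.0614) or LPS replicate 3 (0.0575).

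**Figure D2:**
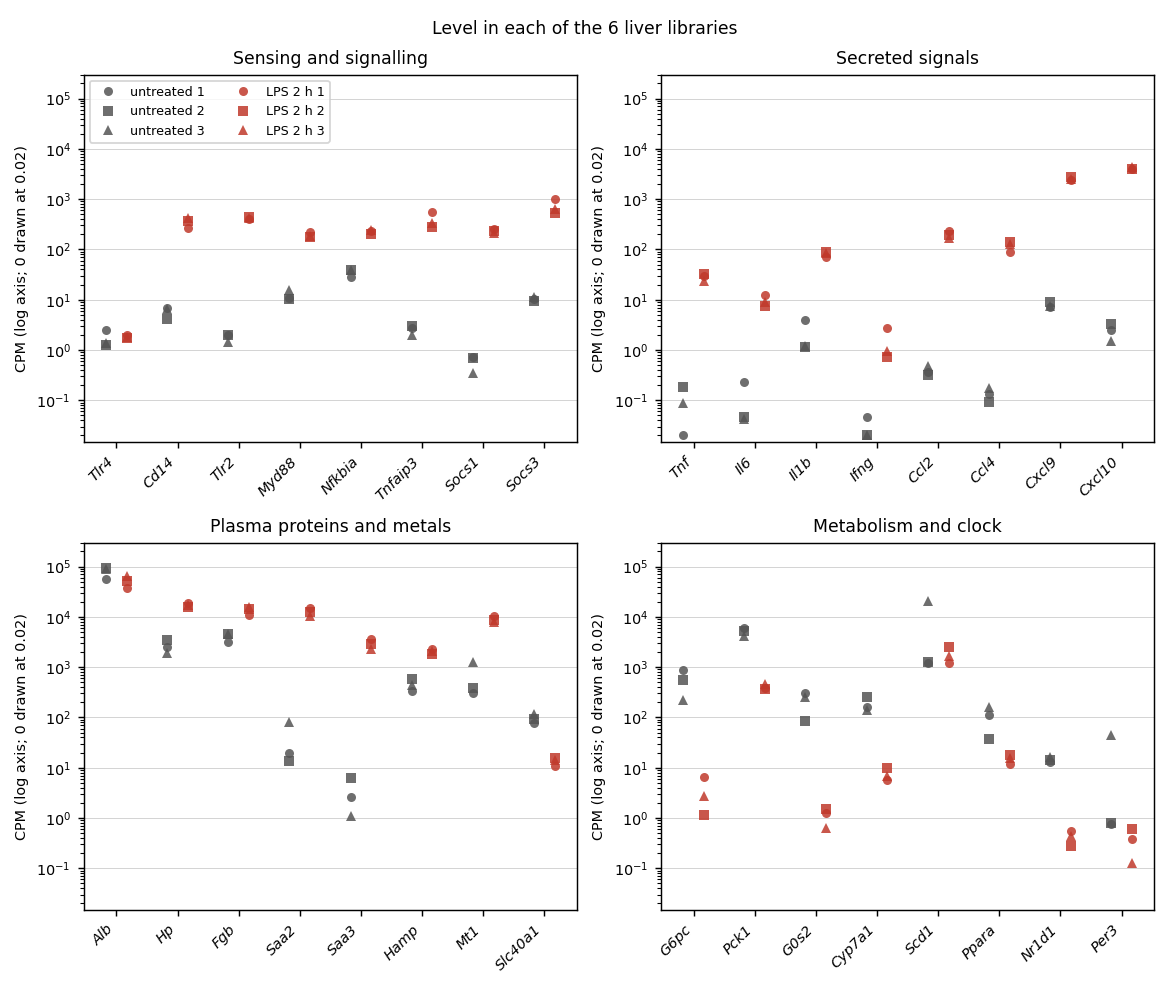
Level of 32 genes in each of the 6 livers (CPM, log axis, with 0 drawn at 0.02), in panels for sensing and feedback, cytokines and chemokines, acute phase and metal genes, and metabolic and clock genes. Untreated and LPS points lie far apart for Socs1, Ccl2, Cxcl9 and Cxcl10 and overlap for Tlr4, Alb and Scd1, and untreated replicate 3 stands alone for Per3 and Scd1.

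**Figure D3:**
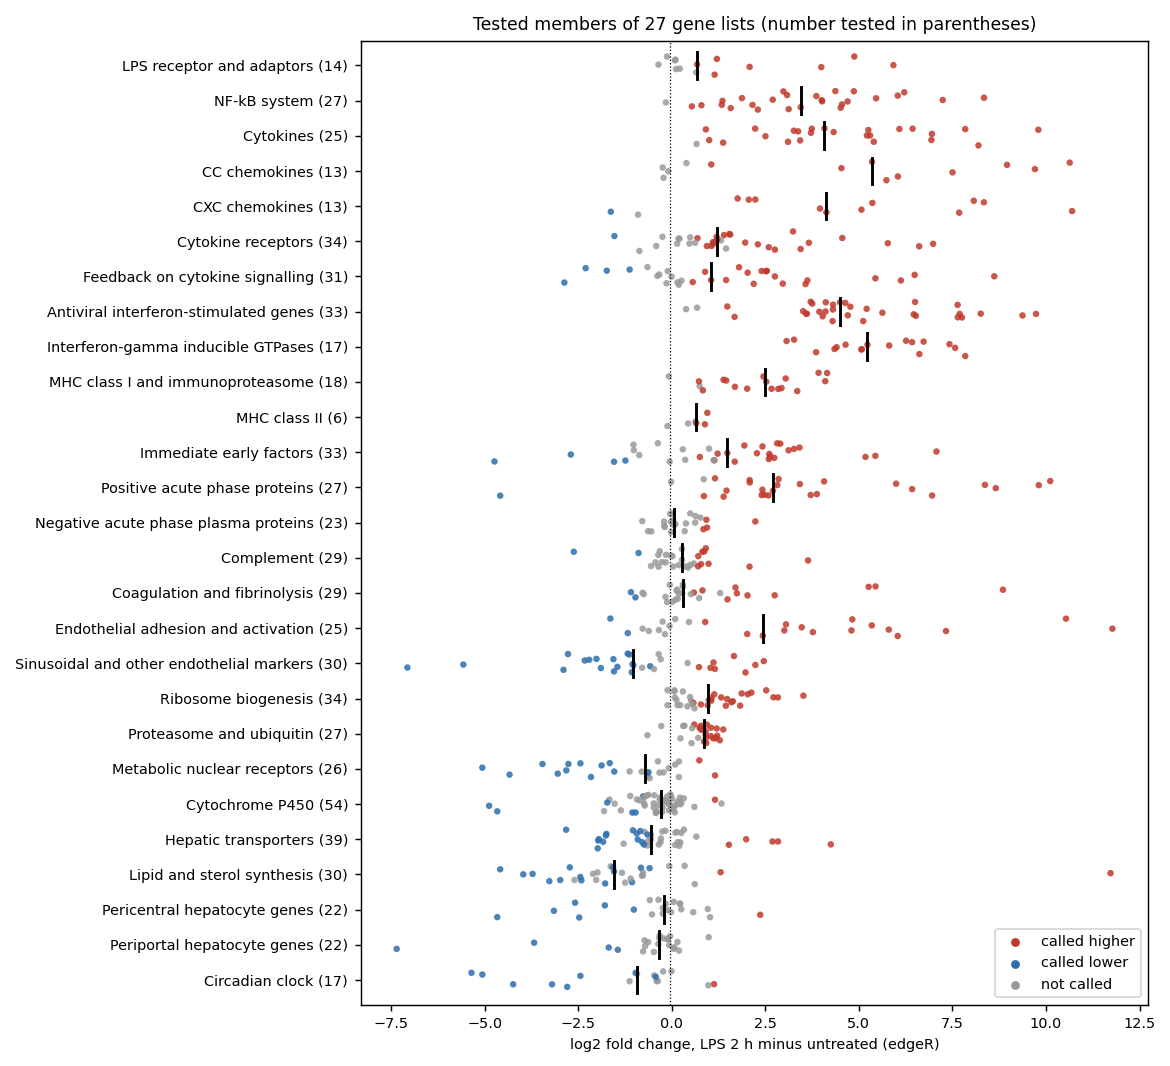
Log2 fold change (LPS minus untreated, horizontal axis) of each tested member of 27 gene lists, with called members coloured by direction, members not called in grey, and the list's median as a black bar. Medians range from 5.35 for the CC chemokines and 5.23 for the interferon-inducible GTPases to -1.55 for lipid and sterol synthesis, beside -0.06 for all tested genes.

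The LPS receptor transcript itself did not pass the test, while the parts around it rose. Tlr4 measured 2.55, 1.25 and 1.39 CPM untreated and 1.94, 1.72 and 1.84 CPM after LPS, and the groups overlapped, with a log2 fold change of 0.08 (95% interval -0.75 to 0.92, adjusted p = 0.871). Cd14, the co-receptor, measured 6.92, 4.17 and 6.43 CPM untreated and 263, 373 and 428 CPM after LPS. Lbp, the plasma carrier of LPS, measured 138, 182 and 59 CPM untreated and 486, 491 and 626 CPM after LPS. Myd88, the adaptor, measured 10.9, 10.2 and 15.4 CPM untreated and 219, 179.8 and 184 CPM after LPS. In all 3 every LPS liver lay above every untreated liver. For Cd14, Lbp and Myd88 the log2 fold changes were 5.92 (SE 0.33), 2.08 (SE 0.39) and 4.0 (SE 0.24), with adjusted p between 6.29e-06 and 0.00294. The inhibitory kinase gene of the same arm, Irak3, went from 2.41, 0.881 and 1.91 to 56.2, 46 and 51.6 CPM (log2 fold change 4.88, SE 0.34). Tirap, the adaptor that brings MyD88 to the membrane, rose less (from 17.2, 15.6 and 16.4 to 28, 39.3 and 41.6 CPM). In the list of the LPS receptor and adaptors, 7 rose and 0 fell of 14 tested members, at a median log2 fold change of 0.67, and 5 rose and 2 fell with library totals alone, at a median of 0.22.

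Receptors for other microbial products rose as well. Tlr2, the receptor for bacterial lipoproteins, measured 1.96, 1.95 and 1.43 CPM untreated and 404, 437 and 429.5 CPM after LPS. Tlr3, the receptor for double-stranded RNA, measured 4.78, 4.4 and 6.3 CPM untreated and 152, 172 and 171 CPM after LPS. Zbp1, a sensor of Z-form nucleic acid, measured 5.83, 5.7 and 8.29 CPM untreated and 150.3, 159.8 and 158 CPM after LPS. None of the 3 overlapped between groups. For Tlr2, Tlr3 and Zbp1 the log2 fold changes were 7.89 (SE 0.27), 5.0 (SE 0.23) and 4.56 (SE 0.23), with adjusted p between 1.42e-06 and 4.45e-06. The lectin receptor genes Clec4e and Clec4d, which sense mycobacterial and fungal lipids, went from 0.0455, 0.0463 and 0.0868 to 6.27, 8.43 and 5.95 CPM and from 0.228, 0.185 and 0.304 to 9.09, 10.2 and 8.73 CPM. Nlrp3, the inflammasome sensor, went from 1.5, 0.973 and 0.782 to 7.52, 8.71 and 8.67 CPM. The flagellin receptor gene Tlr5 was the member that fell, from 4.78, 2.18 and 8.03 to 1.32, 1.5 and 1.65 CPM, a call lost without LPS replicate 1 (adjusted p = 0.053). Of 23 tested members 15 rose, at a median of 2.86.

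Nearly the whole NF-kB system was called higher, inhibitors as much as activators: 26 rose and 0 fell of 27 tested members, at a median of 3.45 (24 rose with library totals). Nfkbia, which encodes the inhibitor that holds NF-kB in the cytoplasm, measured 27.9, 39 and 38.3 CPM untreated and 237, 201 and 244 CPM after LPS. Tnfaip3, the ubiquitin-editing enzyme A20 that ends the signal, measured 2.78, 2.97 and 1.95 CPM untreated and 551, 274 and 341 CPM after LPS. Relb, a subunit of the alternative pathway, measured 1.96, 1.71 and 2.04 CPM untreated and 111, 62.2 and 79.8 CPM after LPS. Groups did not overlap, and the largest of these changes was that of Tnfaip3. For Nfkbia, Tnfaip3 and Relb the log2 fold changes were 2.7 (SE 0.22), 7.24 (SE 0.39) and 5.46 (SE 0.28), with adjusted p between 4.74e-06 and 3.22e-05. Nfkbiz, an atypical inhibitor protein that acts in the nucleus on secondary response genes, went from 4.41, 4.22 and 9.25 to 129.6, 71 and 87.7 CPM. Among kinases, Ripk2, which serves the NOD receptors, went from 4.87, 4.59 and 5.04 to 397, 355 and 325 CPM, and Ikbke, a kinase of IRF3, went from 9.01, 12 and 6.73 to 961, 419 and 442 CPM. For Nfkbiz, Ripk2 and Ikbke the log2 fold changes were 4.01 (SE 0.38), 6.21 (SE 0.23) and 6.04 (SE 0.45), with adjusted p between 1.42e-06 and 8.21e-05. Tnip3, an A20 partner, had 3 counts in all untreated livers against 835 after LPS, a count ratio of 372 (95% counting interval 127 to 1809), and the untreated counts all came from replicate 3. The one member not called was Chuk, the kinase gene of the same complex as Ikbkb, at 102, 82.6 and 131 CPM untreated and 94, 86.7 and 103 CPM after LPS.

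Of the CC chemokines, 9 of 13 tested ligands rose and 0 fell (8 with library totals). Ccl2, the monocyte attractant, measured 0.364, 0.324 and 0.478 CPM untreated and 237, 189.6 and 165 CPM after LPS. Ccl3 and Ccl4, which attract macrophages and lymphocytes, measured 0.273, 0.371 and 0.347 CPM untreated and 61.6, 58.6 and 63.1 CPM after LPS, and 0.137, 0.0927 and 0.174 CPM untreated and 87.8, 139 and 128 CPM after LPS. Ccl5, a further attractant of lymphocytes, measured 1.27, 2.22 and 0.912 CPM untreated and 69.8, 91.8 and 73.7 CPM after LPS. The untreated values were close to the floor for the first 3, and no LPS value overlapped. Genes so low untreated could pass the filter on low counts only through the LPS livers, and could hardly fall. For Ccl2, Ccl3, Ccl4 and Ccl5 the log2 fold changes were 8.96 (SE 0.30), 7.5 (SE 0.23), 9.71 (SE 0.35) and 5.74 (SE 0.34), with adjusted p between 1.42e-06 and 7.69e-06. Ccl7 had 3 untreated counts against 4082 after LPS (count ratio 1819.98 (95% counting interval 622 to 8829)), of which untreated replicate 2 had 0. Ccl8, Ccl11, Ccl17, Ccl20 and Ccl28 did not pass the filter on low counts.

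The CXC family split by direction. Cxcl9 and Cxcl10, ligands of CXCR3 that draw T and NK cells, measured 7.1, 8.95 and 7.51 CPM untreated and 2389, 2804 and 2457 CPM after LPS, and 2.46, 3.34 and 1.52 CPM untreated and 3900.2, 3887 and 4372 CPM after LPS. Cxcl2, a neutrophil attractant, measured 0.273, 0.324 and 0.13 CPM untreated and 61.4, 42.4 and 48.2 CPM after LPS. Cxcl12, the ligand of CXCR4 that retains marrow cells, measured 276, 397 and 435 CPM untreated and 86.2, 136 and 136 CPM after LPS. The first 3 were higher in every LPS liver, and Cxcl12 was lower in every LPS liver. For Cxcl9, Cxcl10, Cxcl2 and Cxcl12 the log2 fold changes were 8.34 (SE 0.32), 10.7 (SE 0.46), 7.68 (SE 0.33) and -1.63 (SE 0.27), with adjusted p between 1.52e-06 and 0.00172. Cxcl1, another neutrophil attractant, went from 0.319, 1.21 and 13.1 to 241, 153 and 209 CPM, and its fold depended on untreated replicate 3: the log2 fold change was 5.36 (SE 1.09, and 8.03 without untreated replicate 3), with adjusted p = 0.00463. Cxcl9, Cxcl10 and Cxcl11 together took 0.00108% to 0.0015% of the counts of an untreated liver and 0.591% to 0.598% of those of an LPS liver. In the list, 11 rose and 1 fell of 13 tested members.

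Chemokine receptors moved both ways, with 6 rose and 5 fell of 14 tested members, and 4 rose and 6 fell with library totals alone, at a median of 0.18. The number that fell went from 5 to 3 without LPS replicate 3. Ccrl2, a receptor that presents chemerin without signalling, measured 1.82, 1.53 and 1.26 CPM untreated and 192, 221 and 208 CPM after LPS. Ackr1, the Duffy antigen that carries chemokines across venules, measured 0.637, 0.463 and 0.825 CPM untreated and 11.5, 7.05 and 9.998 CPM after LPS. Cxcr2 and Ccr1, receptors of neutrophils and monocytes, went from 0.182, 0.232 and 0.347 to 2.07, 2.66 and 2.72 CPM and from 0.137, 0.0927 and 0.13 to 2.7, 3.11 and 3.42 CPM. Those 4 rose without overlap. For Ccrl2, Ackr1, Cxcr2 and Ccr1 the log2 fold changes were 7.07 (SE 0.25), 3.87 (SE 0.33), 3.25 (SE 0.40) and 4.61 (SE 0.40), with adjusted p between 1.42e-06 and 0.000351. Cx3cr1, a receptor of patrolling monocytes and macrophages, fell from 0.819, 0.51 and 0.955 to 0, 0.166 and 0.0633 CPM. Ackr4, a scavenger of CCL19 and CCL21, fell from 2.28, 1.53 and 2.3 to 0.125, 0.222 and 0.633 CPM. For Cx3cr1 and Ackr4 the log2 fold changes were -3.16 (SE 0.74, and -4.34 without LPS replicate 2) and -2.63 (SE 0.54, and -3.48 without LPS replicate 3), with adjusted p between 0.00485 and 0.00856.

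Every cytokine that passed the test rose: 24 rose and 0 fell of 25 tested members, out of 51 listed, at a median of 4.08. Of those listed, 18 were below the filter on low counts and 7 had no count. Members near 0 untreated, such as Tnf, Il12b and Il10, could pass that filter only through the LPS livers. They could hardly fall, so the filter itself tilts this count and median upward. Tnf, which encodes tumour necrosis factor, measured 0, 0.185 and 0.0868 CPM untreated and 29.6, 31.8 and 23.5 CPM after LPS. Il1b and Il1a, which encode interleukin-1, measured 4.0, 1.16 and 1.22 CPM untreated and 71.7, 87.6 and 84.6 CPM after LPS, and 2.82, 1.3 and 1.48 CPM untreated and 27.7, 37.2 and 47.6 CPM after LPS. Il6, which drives the hepatocyte acute phase response, measured 0.228, 0.0463 and 0.0434 CPM untreated and 12.2, 7.66 and 9.11 CPM after LPS. Il1rn, the soluble antagonist of the interleukin-1 receptor, measured 14.7, 12.4 and 14.8 CPM untreated and 649, 507 and 609.9 CPM after LPS. In each of these 5 the lowest LPS liver was above the highest untreated liver. For Tnf, Il1b, Il1a, Il6 and Il1rn the log2 fold changes were 8.19 (SE 0.47, and 9.09 without untreated replicate 2), 5.25 (SE 0.48, and 6.08 without untreated replicate 1), 4.33 (SE 0.35), 6.44 (SE 0.50, and 7.55 without untreated replicate 1) and 5.4 (SE 0.25), with adjusted p between 2.98e-06 and 6.29e-05. Il27, a cytokine of activated macrophages made of this subunit and Ebi3, had 1 count untreated and 950 after LPS, a count ratio of 1271 (95% counting interval 228 to 50242), and the untreated count came from replicate 3. Il12b, the subunit that interleukins 12 and 23 share, went from 0.091, 0.0927 and 0 to 2.01, 3.05 and 2.34 CPM, and Il10, the anti-inflammatory cytokine, went from 0, 0.0463 and 0.13 to 1.32, 3.33 and 3.16 CPM. For Il12b and Il10 the log2 fold changes were 5.21 (SE 0.62) and 5.3 (SE 0.73, and 6.46 without untreated replicate 3), with adjusted p between 0.000287 and 0.000634.

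Interferon transcripts were at the limit of detection although their targets were abundant. Ifng had 1 count untreated and 71 after LPS, most of them in LPS replicate 1 (2.7 against 0.721 and 0.949 CPM), a count ratio of 95 (95% counting interval 16.5 to 3803), and the untreated count came from replicate 1. Ifnb1 had 0 counts untreated and 9, 0 and 1 counts after LPS, and did not pass the filter. Ifna1, Ifna2 and Ifnl3 had no count in any library. Growth factors of myeloid cells were clearer. Csf1, the macrophage growth factor, went from 9.83, 8.57 and 13.9 to 225, 98.9 and 108 CPM, and Csf3, the granulocyte factor, went from 0.091, 0.371 and 0.0434 to 33.8, 13.9 and 16.3 CPM. For Csf1 and Csf3 the log2 fold changes were 3.74 (SE 0.37) and 6.95 (SE 0.62, and 8.16 without untreated replicate 2), with adjusted p between 5.70e-05 and 0.00011. Tnfsf15, a ligand of the TNF family made by endothelium, had 0 untreated counts and was at least 33-fold higher. Il18, which is stored as a precursor, rose least of those named, from 3.14, 6.35 and 7.29 to 15.5, 15.8 and 12.2 CPM.

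Among cytokine receptors, 21 rose and 1 fell of 34 tested members, at a median of 1.21, and 16 rose and 4 fell with library totals alone, at a median of 0.77. Il6ra, the interleukin-6 receptor, was the member that fell and measured 50.8, 62.2 and 98.6 CPM untreated and 17.2, 26.4 and 29.6 CPM after LPS. Osmr, the receptor of oncostatin M in the same family, measured 4.19, 2.69 and 3.56 CPM untreated and 123, 66.2 and 57.3 CPM after LPS. Lifr, the leukaemia inhibitory factor receptor, was not called, at 95.2, 119.7 and 169 CPM untreated and 128, 140.1 and 156 CPM after LPS. Thus Il6ra was lower in all 3 LPS livers, Osmr was higher in all 3, and Lifr overlapped. For Il6ra, Osmr and Lifr the log2 fold changes were -1.53 (SE 0.30), 4.56 (SE 0.35) and 0.14 (SE 0.24), with adjusted p between 2.60e-05 and 0.651. Il1r1, the signalling interleukin-1 receptor, went from 20.3, 15.7 and 57.6 to 301, 282 and 301 CPM and the decoy receptor Il1r2 went from 0, 0.0927 and 0.0868 to 5.83, 7.88 and 5.76 CPM. For Il1r1 and Il1r2 the log2 fold changes were 3.24 (SE 0.47, and 4.04 without untreated replicate 3, a call lost with all 12 libraries in 1 fit) and 6.61 (SE 0.53), with adjusted p between 3.15e-05 and 0.000854. Cd40, the costimulatory receptor, went from 0.683, 0.695 and 0.434 to 41.4, 31.3 and 27.1 CPM, and Tnfrsf9 (4-1BB) had 2 untreated counts against 229 (count ratio 153 (95% counting interval 41.9 to 1272)).

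Feedback genes of these pathways rose in number, 18 rose and 4 fell of 31 tested members, at a median of 1.05, and 14 rose and 8 fell with library totals alone, at a median of 0.62. Socs1 and Socs3, which block JAK kinases below the interferon and interleukin-6 receptors, measured 0.728, 0.695 and 0.347 CPM untreated and 259.9, 233 and 208 CPM after LPS, and 10.3, 9.41 and 11.2 CPM untreated and 994, 523 and 637 CPM after LPS. Cish, a member better known below growth hormone and interleukin-2, measured 5.05, 6.07 and 9.47 CPM untreated and 82.1, 77.8 and 85.8 CPM after LPS. Usp18, which silences the type I interferon receptor, measured 21.9, 15.6 and 9.6 CPM untreated and 685, 738 and 625 CPM after LPS. All 4 rose without overlap. For Socs1, Socs3, Cish and Usp18 the log2 fold changes were 8.62 (SE 0.34), 6.12 (SE 0.34), 3.58 (SE 0.26) and 5.44 (SE 0.36), with adjusted p between 1.52e-06 and 1.81e-05. The phosphatase and decay factor families split. Dusp2 went from 0.319, 0.603 and 0.0868 to 34.4, 29.2 and 27.7 CPM while Dusp6, which acts on ERK, fell from 42.1, 14.6 and 34.6 to 8.02, 9.43 and 9.93 CPM, and Dusp1 was not called at 57.7, 28 and 14.9 CPM untreated and 35.9, 41.9 and 42.5 CPM after LPS. For Dusp2 and Dusp6 the log2 fold changes were 6.49 (SE 0.44, and 7.17 without untreated replicate 2) and -1.74 (SE 0.35), with adjusted p between 1.32e-05 and 0.00464. Of the mRNA decay factors, Zfp36 (tristetraprolin) rose from 84.1, 77.7 and 48.4 to 313, 295 and 352 CPM and its relative Zfp36l2 fell from 83.1, 46.1 and 76.7 to 11.2, 8.04 and 8.99 CPM. Zc3h12a (regnase-1) rose from 2.32, 2.46 and 2.34 to 32.7, 24.4 and 31.1 CPM and its relative Zc3h12c fell from 6.33, 5.01 and 6.6 to 2.76, 2.05 and 3.42 CPM. For Zfp36, Zfp36l2, Zc3h12a and Zc3h12c the log2 fold changes were 2.19 (SE 0.25), -2.87 (SE 0.27), 3.63 (SE 0.20) and -1.13 (SE 0.27), with adjusted p between 6.52e-06 and 0.0106. The same contrast held with library totals in place of TMM for each of these 4 calls.

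Antiviral interferon-stimulated genes rose almost as a body, 31 of 33 tested with 0 lower, at a median of 4.5, and 31 with library totals. Ifit1, which binds foreign RNA caps, measured 19, 20.1 and 8.38 CPM untreated and 5998, 4593 and 3919 CPM after LPS. Mx1, a dynamin-like antiviral GTPase, measured 3.87, 1.95 and 1.26 CPM untreated and 2439, 1768 and 1834 CPM after LPS. Isg15, a ubiquitin-like modifier, measured 10.1, 12.1 and 5.6 CPM untreated and 687, 931 and 839 CPM after LPS. Oasl2, an oligoadenylate synthetase-like protein, measured 6.1, 3.94 and 6.82 CPM untreated and 174, 155 and 132 CPM after LPS. All 4 were higher in every LPS liver. For Ifit1, Mx1, Isg15 and Oasl2 the log2 fold changes were 8.26 (SE 0.50), 9.74 (SE 0.55), 6.47 (SE 0.38) and 4.77 (SE 0.27), with adjusted p between 6.52e-06 and 8.69e-06. Rsad2 (viperin) went from 34, 16.8 and 6.43 to 3251, 4713 and 3466 CPM. For Rsad2 the log2 fold change was 7.64 (SE 0.68, and 8.35 without untreated replicate 1), with adjusted p = 5.87e-05. The list took 0.0772% to 0.0961% of all counts in untreated livers and 1.78% to 2.19% after LPS. Members with near-identical copies, such as those of the Ifit and Oas families, are uncertain one by one, since the sources used here do not say how the authors' counting split shared reads.

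All 17 tested interferon-gamma inducible GTPases rose, at a median of 5.23, also with library totals. They coat the vacuoles of intracellular microbes. Gbp2 measured 7.28, 3.29 and 5.99 CPM untreated and 907, 974 and 961 CPM after LPS, Gbp5 measured 1.55, 1.85 and 2.08 CPM untreated and 458, 392.4 and 414 CPM after LPS, and Irgm1 measured 39.3, 46.7 and 30.3 CPM untreated and 852, 1116 and 942 CPM after LPS. For Gbp2, Gbp5 and Irgm1 the log2 fold changes were 7.42 (SE 0.38), 7.84 (SE 0.27) and 4.64 (SE 0.28), with adjusted p between 1.42e-06 and 8.40e-06. Together they took 0.0483% to 0.0645% of counts untreated and 0.809% to 0.871% after LPS. Their known activators had smaller fold changes. Irf1 measured 15.9, 22.1 and 20.2 CPM untreated and 372, 208 and 245 CPM after LPS, Irf7 measured 28.4, 29.8 and 32.2 CPM untreated and 757, 489 and 449 CPM after LPS and Stat2 measured 36.7, 44.8 and 46.8 CPM untreated and 589, 364 and 314 CPM after LPS. Every LPS value lay above the untreated ones. For Irf1, Irf7 and Stat2 the log2 fold changes were 3.82 (SE 0.29), 4.23 (SE 0.28) and 3.3 (SE 0.29), with adjusted p between 1.24e-05 and 5.73e-05. In the list of interferon transcription factors 15 rose and 2 fell of 20 tested members.

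Genes of antigen presentation were counted separately for MHC class I and class II. Of class I and immunoproteasome genes, 16 rose and 0 fell of 18 tested members, at a median of 2.49 (14 rose and 1 fell with library totals). Nlrc5, the class I transactivator, measured 22.1, 14.9 and 18.7 CPM untreated and 331, 297 and 283 CPM after LPS. Tap1, the peptide transporter, measured 29.1, 21.6 and 22.5 CPM untreated and 548, 375 and 379.6 CPM after LPS. Psmb9, an immunoproteasome subunit, measured 18.1, 18.4 and 19 CPM untreated and 150.2, 157 and 150.2 CPM after LPS. No values overlapped. For Nlrc5, Tap1 and Psmb9 the log2 fold changes were 4.03 (SE 0.24), 4.15 (SE 0.27) and 3.04 (SE 0.17), with adjusted p between 6.58e-06 and 1.06e-05. B2m, the class I light chain, was not called, at 907, 1507 and 1334 CPM untreated and 1894, 2275 and 2113 CPM after LPS. On the class II side, Ciita, its transactivator, measured 2.0, 1.44 and 1.48 CPM untreated and 0.94, 0.388 and 0.443 CPM after LPS, and its log2 fold change was -1.47 (SE 0.44, a call lost without untreated replicate 1 (adjusted p = 0.0735), LPS replicate 2 (0.0944) or LPS replicate 3 (0.0938)), with adjusted p = 0.0241. Cd74, the invariant chain, measured 63, 54.6 and 34.8 CPM untreated and 107, 107 and 80.05 CPM after LPS, and its log2 fold change was 0.95 (SE 0.25, a call lost with library totals alone (adjusted p = 0.14)), with adjusted p = 0.0145. The 3 class II genes called higher were all lost with library totals, at which 0 of 6 passed. Without LPS replicate 1 or 2, or without untreated replicate 2 or 3, 1 class II gene was called higher.

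Some called genes lay side by side. Of all tested genes, 23.3% were called higher and 22.1% lower at any size of change. The number of runs to be had from such shares alone was not computed. Runs of at least 4 neighbouring tested genes, all called in the same direction with log2 fold changes of 1 or more in size, numbered 58 for higher genes (295 genes) and 21 for lower genes (97 genes), and runs of at least 5 numbered 29 and 4. The longest lay on chromosome 1 from 173468485 to 174031810 (GRCm38, as all coordinates), 13 genes in the cluster of the Ifi200 family of DNA sensors. The next were 12 genes on chromosome 11 from 48861968 to 49135387 around the immunity-related GTPase genes Irgm1, Tgtp1 and Tgtp2, and 11 genes on chromosome 11 from 82900768 to 83260960 with the Schlafen family and neighbours. Others were 8 genes on chromosome 5 from 105014150 to 105490074, from Gbp8 to Gbp11 with the neighbour Lrrc8b, 7 Oas genes on chromosome 5 from 120730333 to 120907521, and 6 CXC ligand genes on chromosome 5 from 90759360 to 90905938. On chromosome 17 from 34181987 to 34216321 lay 6 genes in the stretch that holds Psmb9, Tap1, Psmb8 and Tap2, in the MHC region. The longest runs of lower genes were of 8 genes. They comprised the Ugt1a genes with neighbours on chromosome 1 from 88025211 to 88277633, the cholesterol and lipid transporter genes Abca5, Abca6, Abca8a, Abca8b and Abca9 with neighbours on chromosome 11 from 109669749 to 111027968, and zinc finger genes with neighbours on chromosome 17 from 33016863 to 33607764. Members of such families share sequence, and the Ugt1a genes share their last exons, so neighbouring members are not separate evidence.

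**Figure D4:**
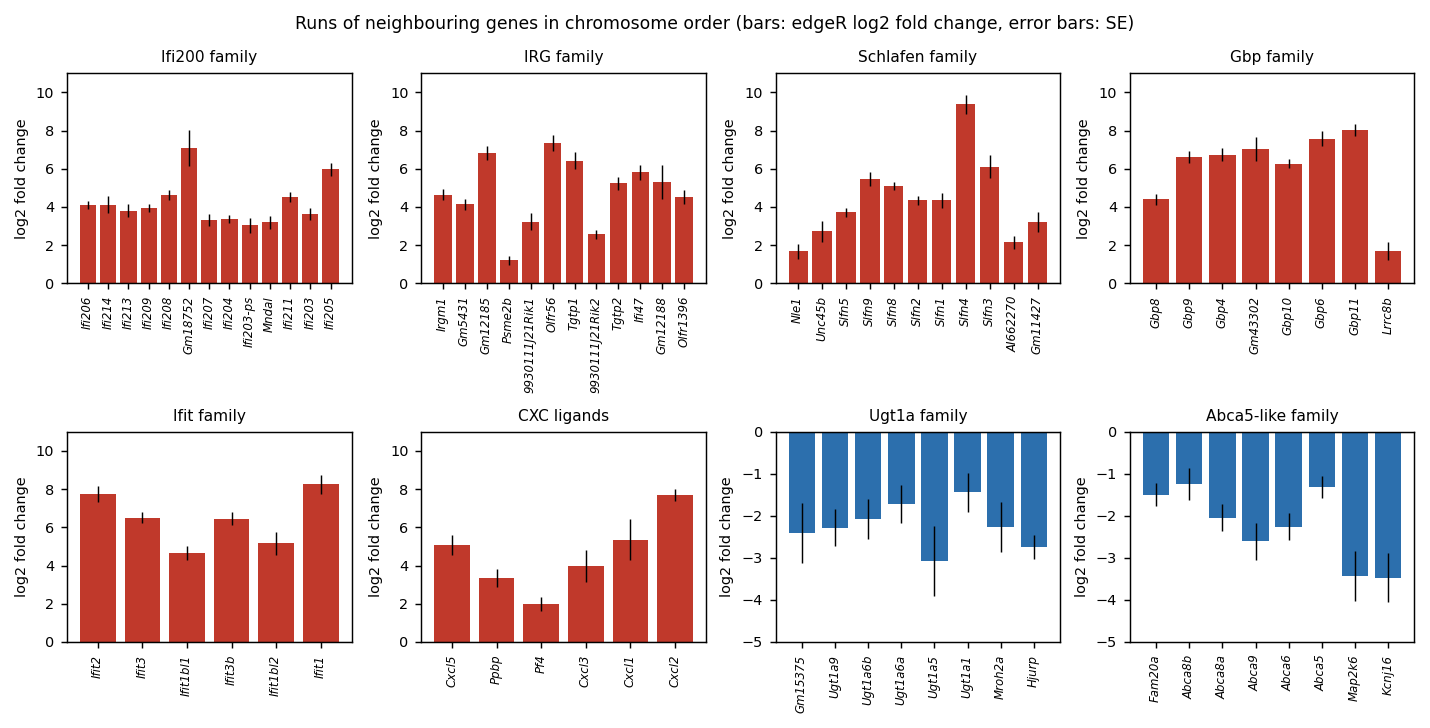
Log2 fold change (LPS minus untreated, bars, with SE as error bars) of the genes of 8 runs, in the order in which they lie on the chromosome. Runs were chosen as neighbouring genes all called in the same direction, so the shared sign within each panel follows from that choice. The runs of higher genes are those of the Ifi200, immunity-related GTPase, Schlafen, Gbp, Ifit and CXC ligand families. Those of lower genes are the Ugt1a and Abca runs.

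Immediate early transcription factors, which need no new protein to be transcribed, were more often higher than lower at 2 h: 20 rose and 4 fell of 33 tested members, at a median of 1.49 (16 rose and 4 fell with library totals). Atf3 measured 2.09, 1.07 and 0.782 CPM untreated and 201, 183 and 148 CPM after LPS. Egr1 measured 40.8, 12.8 and 19.7 CPM untreated and 108, 123 and 163 CPM after LPS. Nr4a3, an orphan nuclear receptor of the early response, measured 0.182, 0.278 and 0.13 CPM untreated and 10.8, 6.77 and 8.73 CPM after LPS. Those were higher in every LPS liver. For Atf3, Egr1 and Nr4a3 the log2 fold changes were 7.07 (SE 0.40), 2.42 (SE 0.40) and 5.44 (SE 0.38), with adjusted p between 6.52e-06 and 0.00174. Jun was not called, with 70.8, 12.6 and 22.3 CPM untreated and 65.4, 82.9 and 81.1 CPM after LPS, with untreated replicate 1 as high as the LPS livers. Fos and Ier3 were also highest among untreated livers in replicate 1, at 5.6, 0.788 and 3.26 CPM untreated and 15, 11.7 and 10.4 CPM after LPS, and 2.91, 0.603 and 1.43 CPM untreated and 77.7, 48.4 and 53.5 CPM after LPS. For Fos and Ier3 the log2 fold changes were 1.94 (SE 0.54, and 2.59 without untreated replicate 1, a call lost without LPS replicate 1 (adjusted p = 0.058) and with library totals alone (adjusted p = 0.0633)) and 5.18 (SE 0.49, and 5.85 without untreated replicate 1), with adjusted p between 8.40e-05 and 0.0182. Among Kruppel-like factors, Klf2, a factor of quiescent endothelium, rose from 6.78, 6.67 and 5.9 to 15.9, 15.4 and 14 CPM. Klf9 fell from 109.8, 87.9 and 90.3 to 10.8, 14.3 and 19.2 CPM and Klf15, an activator of amino acid catabolism and glucose production, fell from 124, 184 and 123 to 6.46, 4.66 and 5.06 CPM. For Klf2, Klf9 and Klf15 the log2 fold changes were 1.22 (SE 0.18), -2.7 (SE 0.24) and -4.74 (SE 0.26), with adjusted p between 6.47e-06 and 0.000875. Maf, a macrophage and endothelial identity factor, also fell, from 30.6, 21 and 33.7 to 10.5, 10.9 and 7.85 CPM. For Maf the log2 fold change was -1.54 (SE 0.23), with adjusted p = 0.00105.

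The positive acute phase proteins made up 1.52% to 2.61% of all counts in untreated livers and 7.93% to 8.79% in LPS livers, and 24 rose and 1 fell of 27 tested members, at a median of 2.7. The member that fell was Lpin1, a phosphatidate phosphatase that the list holds although it is no plasma protein, and its values are given with the lipid genes. Hp, the haemoglobin scavenger haptoglobin, measured 2524, 3464 and 1943 CPM untreated and 18553, 15974 and 17186 CPM after LPS. Saa3, a serum amyloid also made by macrophages, measured 2.59, 6.3 and 1.09 CPM untreated and 3709, 2884 and 2347 CPM after LPS. Saa1 and Saa2, near-identical copies whose shared reads cannot be assigned with certainty, measured 36.6, 29.2 and 172 CPM untreated and 10630.1, 10439.6 and 8493 CPM after LPS, and 19.8, 13.5 and 80.7 CPM untreated and 14768, 12715 and 10221 CPM after LPS. Untreated replicate 3 was the highest untreated liver for both and still lay far below every LPS liver. For Hp, Saa3, Saa1 and Saa2 the log2 fold changes were 2.7 (SE 0.35), 9.81 (SE 0.75, and 10.63 without untreated replicate 2), 6.96 (SE 0.80, and 8.23 without untreated replicate 3) and 8.37 (SE 0.84, and 9.56 without untreated replicate 3), with adjusted p between 2.47e-05 and 0.000436. A2m, the protease inhibitor alpha-2-macroglobulin, had 2 counts untreated and 2027 after LPS, a count ratio of 1356 (95% counting interval 375 to 11201). Ptx3, a long pentraxin of endothelium and macrophages, had 0 counts untreated and was at least 56.2-fold higher, with 6.02 CPM in LPS replicate 1 against 0.666 and 1.14. Serpina3n, a protease inhibitor, went from 395, 502 and 552 to 3726, 5402 and 6429.7 CPM.

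The plasma proteins known to fall in the acute phase gave no call in the lower direction at 2 h: 4 rose and 0 fell of 23 tested members, at a median of 0.06 (1 rose and 1 fell with library totals alone, at a median of -0.36). The number that rose went from 4 to 1 without LPS replicate 1, LPS replicate 2 or LPS replicate 3 and to 2 without untreated replicate 1. Alb, albumin, measured 55637, 92517 and 90426 CPM untreated and 36805, 52627 and 64454 CPM after LPS, or 7.06% to 10.4% of counts untreated and 3.24% to 5.44% after LPS. Ttr, transthyretin, measured 2329, 4632 and 4723 CPM untreated and 3300.4, 4202 and 4510.2 CPM after LPS. Rbp4, the retinol carrier, measured 3974, 5373 and 2897 CPM untreated and 5047, 4961 and 5909.9 CPM after LPS. All 3 overlapped between groups. For Alb, Ttr and Rbp4 the log2 fold changes were -0.63 (SE 0.43), 0.04 (SE 0.34) and 0.38 (SE 0.31), with adjusted p between 0.257 and 0.935. Their 95% intervals were -1.6 to 0.34, -0.74 to 0.82 and -0.33 to 1.09. Trf, transferrin, placed in this list for its known fall, rose without overlap, from 335, 778 and 690.2 to 3554, 2518 and 2404 CPM. For Trf the log2 fold change was 2.23 (SE 0.37), with adjusted p = 0.00165.

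Complement genes leaned upward with TMM scaling and downward with library totals, while coagulation genes kept more higher than lower calls and only their median changed sign. In complement, 9 rose and 2 fell of 29 tested members, and 2 rose and 8 fell with library totals alone, at a median of -0.16. The higher count depended on single livers and went from 9 to 4 without LPS replicate 2 or LPS replicate 3. C2, of the classical pathway, measured 14, 24.8 and 29.6 CPM untreated and 131, 85.5 and 72.5 CPM after LPS. C5ar1, the receptor of the C5a fragment, measured 1.05, 1.21 and 0.999 CPM untreated and 8.15, 15.5 and 17.1 CPM after LPS. Masp1, a protease of the lectin pathway, measured 48.2, 33.8 and 50.5 CPM untreated and 5.14, 7.43 and 8.99 CPM after LPS. C3, the central component, was not called, at 7537, 8334 and 6758 CPM untreated and 11377, 11203 and 11439 CPM after LPS. For C2, C5ar1, Masp1 and C3 the log2 fold changes were 2.08 (SE 0.32), 3.64 (SE 0.33), -2.62 (SE 0.26) and 0.59 (SE 0.28), with adjusted p between 6.73e-05 and 0.122. In coagulation, 10 rose and 2 fell of 29 tested members, and 8 rose and 5 fell with library totals alone, at a median of -0.13. The 3 fibrinogen chains together took 1.06% to 1.35% of counts untreated and 2.33% to 3.62% after LPS. For Fga, Fgb and Fgg the log2 fold changes were 1.49 (SE 0.35), 1.74 (SE 0.33) and 2.02 (SE 0.33), with adjusted p between 0.00154 and 0.0084. F13b, whose product carries the enzyme that crosslinks fibrin, fell from 205, 238 and 235 to 76.8, 121 and 121 CPM. Plaur, the urokinase receptor, went from 0.637, 0.371 and 0.695 to 29.4, 20.9 and 25 CPM, and Procr and Thbd, which activate protein C, went from 0.865, 0.927 and 0.434 to 20.4, 35.5 and 29.7 CPM and from 2.46, 1.3 and 3.0 to 6.52, 17.4 and 21.7 CPM. For Plaur, Procr and Thbd the log2 fold changes were 5.45 (SE 0.29), 5.26 (SE 0.35) and 2.75 (SE 0.47), with adjusted p between 5.41e-06 and 0.00199.

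Genes of iron and zinc transport changed on both the uptake and the export side. Hamp, which encodes hepcidin, the hormone that degrades the iron exporter, measured 339, 588 and 444 CPM untreated and 2323, 1854 and 2116 CPM after LPS. Slc40a1, the iron exporter ferroportin itself, measured 78.5, 95 and 118 CPM untreated and 11, 15.5 and 14.3 CPM after LPS. Hfe2 (hemojuvelin), a co-receptor that induces hepcidin, measured 52.8, 72.4 and 64.3 CPM untreated and 18.1, 25.4 and 31.8 CPM after LPS. Hamp was higher and both others were lower in every LPS liver. For Hamp, Slc40a1 and Hfe2 the log2 fold changes were 2.2 (SE 0.29), -2.83 (SE 0.23) and -1.33 (SE 0.24), with adjusted p between 3.19e-05 and 0.00237. Hmox1, heme oxygenase, went from 12, 20.2 and 18.1 to 143, 116 and 158 CPM, and Slc11a2, the iron importer DMT1, went from 16.7, 22.5 and 16.5 to 139, 148 and 131 CPM. Slc39a14, a zinc and iron importer, measured 99.6, 89.9 and 292 CPM untreated and 760.4, 714 and 747 CPM after LPS, and Mt1, metallothionein, measured 309, 381 and 1242 CPM untreated and 10552, 8803 and 7888 CPM after LPS. Slc30a1, the zinc exporter, measured 41.5, 40.6 and 39.8 CPM untreated and 9.03, 11.7 and 14.2 CPM after LPS. Untreated replicate 3 was the highest untreated liver for the first 2 of these 3. For Slc39a14, Mt1 and Slc30a1 the log2 fold changes were 2.21 (SE 0.45, and 2.97 without untreated replicate 3), 3.82 (SE 0.57, and 4.72 without untreated replicate 3) and -1.8 (SE 0.20), with adjusted p between 0.000203 and 0.0044. In the list 12 rose and 4 fell of 25 tested members, and 8 rose and 8 fell with library totals alone, at a median of 0.06.

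Endothelial adhesion and vascular mediator genes rose while many endothelial identity genes fell. Of the first list, 15 rose and 2 fell of 25 tested members, at a median of 2.43. Selp, Vcam1 and Icam1, which slow and hold leukocytes, measured 1.55, 1.81 and 0.782 CPM untreated and 76.9, 39.9 and 51.5 CPM after LPS, 14, 12 and 17.9 CPM untreated and 280.4, 168 and 151 CPM after LPS, and 12.1, 10.8 and 6.95 CPM untreated and 369.5, 199.8 and 274 CPM after LPS. For Selp, Vcam1 and Icam1 the log2 fold changes were 5.34 (SE 0.38), 3.77 (SE 0.31) and 4.82 (SE 0.34), with adjusted p between 1.56e-05 and 3.42e-05. Sele (E-selectin) and Nos2, the inducible nitric oxide synthase, had 0 counts in every untreated liver and were at least 495-fold and 213-fold higher. Adm, which encodes the vasodilator adrenomedullin, went from 1.91, 1.02 and 0.912 to 53.8, 65.5 and 95.5 CPM, and Edn1, which encodes the vasoconstrictor endothelin, went from 0.91, 0.278 and 1.13 to 6.83, 7.66 and 4.94 CPM. Ptgs2 (COX-2) went from 0, 0.0927 and 0.13 to 8.9, 3.22 and 3.92 CPM while Ptgs1 (COX-1) fell from 8.6, 6.86 and 9.38 to 3.2, 4.05 and 3.73 CPM. For Adm, Edn1, Ptgs2 and Ptgs1 the log2 fold changes were 5.8 (SE 0.37), 3.05 (SE 0.45), 6.04 (SE 0.71, and 6.66 without untreated replicate 3) and -1.18 (SE 0.23), with adjusted p between 1.04e-05 and 0.00389.

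Of the sinusoidal and other endothelial markers, 8 rose and 17 fell of 30 tested members, at a median of -1.04, and 4 rose and 21 fell with library totals alone, at a median of -1.48. Kdr, the VEGF receptor 2, measured 41.6, 22.7 and 30.9 CPM untreated and 4.33, 4.11 and 4.37 CPM after LPS. Gpr182, an atypical chemokine receptor of sinusoids, measured 20.4, 15.8 and 24.4 CPM untreated and 3.39, 2.5 and 2.97 CPM after LPS. Lyve1, a hyaluronan receptor of sinusoids, measured 12.5, 6.21 and 7.69 CPM untreated and 33.1, 32.6 and 37.8 CPM after LPS. Lmo2, a transcription cofactor of endothelium, measured 8.06, 7.14 and 3.65 CPM untreated and 33.8, 34.3 and 35.5 CPM after LPS. Thus members of this list moved in both directions without overlap, and bulk liver does not show in which cells each of them changed. For Kdr, Gpr182, Lyve1 and Lmo2 the log2 fold changes were -2.89 (SE 0.25), -2.77 (SE 0.24), 1.97 (SE 0.27) and 2.46 (SE 0.28), with adjusted p between 5.01e-05 and 0.000559. Clec14a, an endothelial lectin, fell from 14.9, 8.16 and 11.8 to 0.188, 0.0555 and 0 CPM. Of the SOX factors that specify endothelium, Sox18 fell to 3 counts from 210 (untreated over LPS count ratio 52.3 (95% counting interval 17.7 to 256)), all in LPS replicate 2, and Sox7 rose from 1.41, 1.02 and 1.43 to 6.52, 6.6 and 5.13 CPM. For Clec14a and Sox7 the log2 fold changes were -7.06 (SE 0.57, and -8.33 without LPS replicate 1) and 2.23 (SE 0.28), with adjusted p between 3.19e-05 and 0.000362. The summed level of 10 sinusoidal markers was 184 to 291 CPM untreated and 219 to 252 CPM after LPS.

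The sinusoidal endothelium also secretes the Wnt ligands that set the zonation of hepatocytes around the central vein. One of these ligands and 4 genes known to respond to the pathway fell, while others were not called. Wnt2 measured 2.37, 1.53 and 2.26 CPM untreated and 0.69, 0.333 and 0.633 CPM after LPS. Wnt9b had 36 counts untreated and 1 after LPS, below the filter. Axin2 and Znrf3, feedback targets of the pathway in hepatocytes, measured 9.69, 9.36 and 4.12 CPM untreated and 1.32, 2.05 and 0.759 CPM after LPS, and 14, 12.1 and 10.7 CPM untreated and 3.82, 3.55 and 3.29 CPM after LPS. Rnf43, another such target, measured 6.87, 17.6 and 15.3 CPM untreated and 2.32, 1.33 and 0.823 CPM after LPS, and Tbx3, a pericentral factor, measured 16.6, 29.9 and 27.2 CPM untreated and 3.01, 5.27 and 3.99 CPM after LPS. The 5 tested genes were lower in every LPS liver. For Wnt2, Axin2, Znrf3, Rnf43 and Tbx3 the log2 fold changes were -1.89 (SE 0.41), -2.47 (SE 0.45), -1.79 (SE 0.21), -3.15 (SE 0.46) and -2.58 (SE 0.30), with adjusted p between 0.000251 and 0.00615. Of abundant pericentral enzymes, 3 known targets of the pathway were not called: Glul measured 565, 925 and 921 CPM untreated and 821, 1807 and 2069 CPM after LPS, Cyp2e1 measured 4033, 6519 and 5943 CPM untreated and 3526, 6939 and 5788 CPM after LPS and Cyp1a2 measured 103, 259 and 608 CPM untreated and 315, 597 and 246 CPM after LPS. Lgr5 was not called either (9.74, 7.28 and 4.43 CPM untreated and 3.51, 5.05 and 5.7 CPM after LPS). In the pericentral list 1 rose and 6 fell of 22 tested members, and in the periportal list 0 rose and 4 fell of 22 tested members, with 10 periportal genes lower under library totals and 2 without LPS replicate 1 or LPS replicate 2.

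Nuclear receptors of metabolism and their partners were more often lower than higher, 2 rose and 13 fell of 26 tested members, at a median of -0.72, and 1 rose and 19 fell with library totals alone, at a median of -1.16. Ppara, the sensor of fatty acids in fasting, measured 109.9, 36.8 and 163 CPM untreated and 11.7, 18.1 and 15.8 CPM after LPS. Nr1i3 (CAR) and Nr1i2 (PXR), the sensors of foreign compounds, measured 48.3, 47.3 and 62.6 CPM untreated and 10.7, 15.3 and 17.1 CPM after LPS, and 56.3, 74.2 and 117 CPM untreated and 32.2, 19.5 and 26.8 CPM after LPS. Nr0b2 (SHP), a corepressor induced by bile acids, measured 10.8, 15.9 and 18.6 CPM untreated and 0.878, 0.777 and 0.57 CPM after LPS. None overlapped. For Ppara, Nr1i3, Nr1i2 and Nr0b2 the log2 fold changes were -2.76 (SE 0.48), -1.87 (SE 0.23), -1.66 (SE 0.30) and -4.33 (SE 0.31), with adjusted p between 1.81e-05 and 0.00262. Hnf4a, the master factor of hepatocytes, was not called at 366, 515 and 523 CPM untreated and 236, 419 and 430.5 CPM after LPS, with a 95% interval of -1.02 to 0.28 for its log2 fold change. Nr5a2 (LRH-1) rose from 50.9, 71.3 and 47.8 to 144, 121 and 114 CPM, and its log2 fold change was 1.16 (SE 0.21, a call lost with all 12 libraries in 1 fit), with adjusted p = 0.00291. The coactivator genes Ppargc1a and Ppargc1b, which drive mitochondrial and fasting genes, fell from 59.2, 31.4 and 16 to 5.2, 2.16 and 5.57 CPM and from 8.51, 4.08 and 4.95 to 0.878, 0.277 and 0.443 CPM. For Ppargc1a and Ppargc1b the log2 fold changes were -3.05 (SE 0.52) and -3.45 (SE 0.48), with adjusted p between 0.000649 and 0.00185.

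Liver-enriched transcription factors moved in both directions (9 rose and 7 fell of 24 tested members, at a median of 0.00), and the lean of the list turned between the scalings, as 7 rose and 11 fell with library totals alone, at a median of -0.42. Cebpd and Cebpb, the C/EBP factors of the acute phase, measured 10.8, 10.6 and 8.9 CPM untreated and 129.97, 113 and 102 CPM after LPS, and 74.4, 97.6 and 171 CPM untreated and 399, 345 and 343 CPM after LPS. Cebpa, the C/EBP factor of resting hepatocytes, measured 184, 345 and 338 CPM untreated and 289, 339 and 352 CPM after LPS. The first 2 rose in every LPS liver and Cebpa overlapped. For Cebpd, Cebpb and Cebpa the log2 fold changes were 3.51 (SE 0.19), 1.66 (SE 0.31) and 0.18 (SE 0.27), with adjusted p between 6.29e-06 and 0.62. Onecut1 (HNF6), another hepatocyte factor, fell from 5.46, 5.33 and 8.64 to 1.82, 1.55 and 2.02 CPM, and the FOXA genes Foxa2 and Foxa3 rose from 13.8, 23.6 and 18.1 to 39.8, 38.4 and 42.2 CPM and from 26.2, 40.7 and 27.5 to 77.4, 75.3 and 79.5 CPM. For Onecut1, Foxa2 and Foxa3 the log2 fold changes were -1.85 (SE 0.30), 1.12 (SE 0.22) and 1.3 (SE 0.21), with adjusted p between 0.00135 and 0.0035.

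Targets of glucocorticoid, growth hormone and insulin signalling gave no single direction. Of glucocorticoid-responsive genes, 2 rose and 5 fell of 16 tested members, at a median of -0.65 (1 rose and 12 fell with library totals). Lower calls depended on single livers and went from 5 to 3 without LPS replicate 2 or LPS replicate 3. Tsc22d3 (GILZ), a standard glucocorticoid target, measured 50.7, 134 and 54 CPM untreated and 15, 13.2 and 11.7 CPM after LPS. Fkbp5, another, was not called at 33.5, 60.7 and 107 CPM untreated and 62.9, 110.5 and 113 CPM after LPS. Mt2 of the same list rose (from 0.637, 0.834 and 3.43 to 34.2, 30.8 and 29.4 CPM). For Tsc22d3, Fkbp5 and Mt2 the log2 fold changes were -2.58 (SE 0.38), 0.51 (SE 0.40) and 4.25 (SE 0.55, and 5.41 without untreated replicate 3), with adjusted p between 0.000448 and 0.329. Of the growth hormone, IGF and insulin list, 2 rose and 4 fell of 21 tested members, at a median of -0.31 (2 rose and 12 fell with library totals alone, at a median of -0.77). On the insulin side, Irs1, the receptor substrate, fell from 15.6, 8.53 and 7.86 to 0.188, 0.555 and 0.57 CPM, while Irs2 was not called at 148, 67.7 and 30.00 CPM untreated and 62.3, 62.5 and 66.9 CPM after LPS. Foxo3 fell from 48.2, 27.8 and 52 to 4.7, 5.94 and 5.7 CPM. For Irs1, Irs2 and Foxo3 the log2 fold changes were -4.58 (SE 0.46), -0.36 (SE 0.46) and -2.97 (SE 0.27), with adjusted p between 6.48e-05 and 0.559. Socs2 and Cish, known growth hormone targets, rose, Socs2 from 44, 37.8 and 29.4 to 192, 186 and 269 CPM, while Igf1 (348, 560.4 and 497 CPM untreated and 698, 678 and 699 CPM after LPS) and Ghr (187, 344 and 427 CPM untreated and 185, 245 and 217 CPM after LPS) were not called. Klb, the co-receptor for FGF21 in liver, fell from 37.1, 28.5 and 26.8 to 2.38, 3.88 and 4.75 CPM, and Egfr rose from 229, 294 and 228 to 595, 868 and 922 CPM. For Socs2, Klb and Egfr the log2 fold changes were 2.54 (SE 0.25), -3.07 (SE 0.28) and 1.67 (SE 0.26), with adjusted p between 6.47e-05 and 0.0011.

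Of factors that the liver secretes, 4 rose and 6 fell of 21 tested members. Inhbb, which encodes a subunit of activin B that acts on hepcidin, measured 1.46, 0.371 and 1.39 CPM untreated and 42.4, 39.6 and 36.3 CPM after LPS. Gdf2, which encodes BMP9 for endothelium, measured 17.8, 16.7 and 13.9 CPM untreated and 0.94, 1.17 and 0.759 CPM after LPS. Hgf, which encodes a growth factor for hepatocytes, measured 16.8, 6.58 and 8.03 CPM untreated and 3.2, 1.89 and 2.47 CPM after LPS. Thpo, which encodes thrombopoietin, measured 8.42, 10.8 and 8.16 CPM untreated and 33.7, 24.1 and 26.1 CPM after LPS. The groups did not overlap for any, and 2 rose and 2 fell. For Inhbb, Gdf2, Hgf and Thpo the log2 fold changes were 5.19 (SE 0.41), -4.06 (SE 0.26), -2.06 (SE 0.40) and 1.62 (SE 0.21), with adjusted p between 9.99e-06 and 0.00351. Fgf21 rested on untreated replicate 1: 37.7, 2.69 and 1.13 CPM untreated and 1.88, 0 and 0 CPM after LPS. For Fgf21 the log2 fold change was -4.48 (SE 1.58, and -11.11 without LPS replicate 1, a call lost without untreated replicate 1 (adjusted p = 0.356), LPS replicate 2 (0.109) or LPS replicate 3 (0.116), in DESeq2 and with all 12 libraries in 1 fit), with adjusted p = 0.0451.

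Few genes of drug metabolism passed the test at 2 h. Of cytochrome P450 genes, 1 rose and 6 fell of 54 tested members, at a median of -0.29 (0 rose and 17 fell with library totals, and 3 fell without LPS replicate 3), and together they took 2.63% to 3.16% of counts untreated and 1.58% to 2.38% after LPS. Cyp7a1, which takes the first step from cholesterol to bile acids, measured 163, 259.9 and 142 CPM untreated and 5.58, 9.88 and 6.77 CPM after LPS. Cyp26b1, which breaks down retinoic acid, measured 4.6, 2.5 and 5.86 CPM untreated and 0, 0.166 and 0.253 CPM after LPS. Cyp3a11, the main drug-oxidising enzyme gene of its family, was not called at 1359.6, 3421 and 1772 CPM untreated and 2068, 2348 and 2158 CPM after LPS. For Cyp7a1, Cyp26b1 and Cyp3a11 the log2 fold changes were -4.66 (SE 0.34), -4.88 (SE 0.66, and -5.52 without LPS replicate 3) and 0.00 (SE 0.36), with adjusted p between 1.89e-05 and 0.993. Hepatic transporters fell more often, 5 rose and 14 fell of 39 tested members (19 fell with library totals, 8 without LPS replicate 1 or LPS replicate 2, and 5 without LPS replicate 3). Abcc2, which exports conjugates into bile, measured 353, 305 and 488 CPM untreated and 78.4, 112 and 107 CPM after LPS. Slc10a5, of the bile acid transporter family, measured 47.2, 26.2 and 42.5 CPM untreated and 4.01, 5.66 and 6.71 CPM after LPS. Slc7a2, an arginine importer, measured 1267, 941 and 487 CPM untreated and 237, 186 and 260.01 CPM after LPS. Abca1, the cholesterol exporter, measured 137, 109 and 122 CPM untreated and 518, 444 and 498 CPM after LPS. Of these Abca1 was higher and the rest were lower in every LPS liver. For Abcc2, Slc10a5, Slc7a2 and Abca1 the log2 fold changes were -1.95 (SE 0.26), -2.82 (SE 0.29), -1.98 (SE 0.36) and 1.99 (SE 0.21), with adjusted p between 0.000125 and 0.00252. Abcb11, the bile salt export pump, was not called (261, 405 and 301 CPM untreated and 356, 326 and 346 CPM after LPS).

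Lipid and sterol synthesis had the lowest median of the metabolic lists, -1.55, with 2 rose and 14 fell of 30 tested members, but it depended on untreated replicate 3. Without that liver the median was -0.53, with 5 higher and 12 lower. The lower count also depended on single LPS livers and went from 14 to 8 without LPS replicate 1 or LPS replicate 2 and to 9 without LPS replicate 3. The 3 genes of glycerolipid synthesis kept their calls without untreated replicate 3, as did Insig1, the sterol-sensing retention protein (log2 fold change -2.72, and -1.82 without that liver). Gpam, the first enzyme of triglyceride synthesis, measured 104, 33 and 100.2 CPM untreated and 3.51, 5.44 and 6.2 CPM after LPS. Lpin1 and Lpin2, phosphatidate phosphatases, measured 171, 52.2 and 187 CPM untreated and 5.2, 4.77 and 7.15 CPM after LPS, and 356, 146 and 367 CPM untreated and 30.5, 26.4 and 33.1 CPM after LPS. All were lower in every LPS liver. For Gpam, Lpin1 and Lpin2 the log2 fold changes were -3.97 (SE 0.46), -4.58 (SE 0.49) and -3.27 (SE 0.36), with adjusted p between 0.000158 and 0.000249. Scd1 and Fasn of fatty acid synthesis were not called, at 1197, 1282 and 20854 CPM untreated and 1203, 2521 and 1705 CPM after LPS, and 36.6, 54.7 and 394 CPM untreated and 75.2, 104 and 106 CPM after LPS, where untreated replicate 3 lay far above the other 5 livers. Ch25h, which makes 25-hydroxycholesterol, had 0 counts untreated and 37.7, 12.4 and 15.4 CPM after LPS, and was at least 476-fold higher. Of targets of PPAR alpha and ketone synthesis, 1 rose and 4 fell of 26 tested members, at a median of 0.11 (0 rose and 7 fell with library totals alone, at a median of -0.33). Lower calls in this list went from 4 to 1 without untreated replicate 1 or LPS replicate 2 and to 2 without untreated replicate 2 or LPS replicate 3. Cpt1a, of fatty acid entry into mitochondria, was not called, at 983, 572 and 617 CPM untreated and 447, 493 and 513 CPM after LPS. G0s2, the inhibitor of the lipase ATGL, was the exception by size, from 312, 83.7 and 253 to 1.25, 1.5 and 0.633 CPM. For G0s2 the log2 fold change was -7.57 (SE 0.61), with adjusted p = 3.19e-05.

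Glucose genes fell on the side of glucose output and glycogen and rose on the side of glycolysis, 10 rose and 10 fell of 30 tested members (7 rose and 11 fell with library totals alone, at a median of -0.41). Pck1 and G6pc, the first and the last committed enzymes of glucose production, measured 6028, 5182 and 4107 CPM untreated and 377, 368 and 452 CPM after LPS, and 897, 561 and 226 CPM untreated and 6.46, 1.17 and 2.72 CPM after LPS. Ppp1r3b, which brings the phosphatase to glycogen, measured 132, 148 and 101 CPM untreated and 36.7, 25.5 and 34.6 CPM after LPS. Pfkfb3, which makes the activator of phosphofructokinase, measured 2.59, 1.67 and 7.42 CPM untreated and 236, 307 and 283 CPM after LPS. Hk2 and Ldha, at the entry and the exit of glycolysis, measured 1.82, 1.53 and 1.13 CPM untreated and 31.5, 21.2 and 18.8 CPM after LPS, and 1472, 1146 and 516 CPM untreated and 4842, 4621 and 5386 CPM after LPS. No values overlapped. For Pck1, G6pc, Ppp1r3b, Pfkfb3, Hk2 and Ldha the log2 fold changes were -3.68 (SE 0.30), -7.35 (SE 0.79, and -8.16 without LPS replicate 1), -1.98 (SE 0.23), 6.14 (SE 0.56, and 7.01 without untreated replicate 3), 3.99 (SE 0.29) and 2.24 (SE 0.40), with adjusted p between 1.95e-05 and 0.00233. Hif1a, which drives glycolysis genes, rose from 32.5, 26.3 and 31.3 to 79.3, 69.9 and 69.7 CPM. The glucose transporter gene Slc2a1 was not called, at 12.1, 17.3 and 17.3 CPM untreated and 18.5, 7.66 and 7.91 CPM after LPS.

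In amino acid and nitric oxide metabolism 8 rose and 4 fell of 43 tested members (7 rose and 16 fell with library totals). The number that fell went from 4 to 1 without LPS replicate 1 or LPS replicate 2, to 2 without untreated replicate 2 or LPS replicate 3 and to 9 without untreated replicate 1 or untreated replicate 3. Acod1, which makes itaconate in activated macrophages, measured 0, 0.185 and 0.13 CPM untreated and 54.3, 86.4 and 69.99 CPM after LPS. Arg2, the mitochondrial arginase, measured 0.228, 0.232 and 0.13 CPM untreated and 1.32, 2.16 and 2.4 CPM after LPS. Slc7a1, an arginine importer, measured 1.64, 1.07 and 1.04 CPM untreated and 10.3, 5.55 and 6.14 CPM after LPS. Sat1, of polyamine breakdown, measured 39, 49.9 and 74.7 CPM untreated and 160.2, 145 and 154 CPM after LPS. All were higher in every LPS liver. For Acod1, Arg2, Slc7a1 and Sat1 the log2 fold changes were 9.3 (SE 0.49, and 9.88 without untreated replicate 2), 3.28 (SE 0.46), 2.55 (SE 0.35) and 1.49 (SE 0.25), with adjusted p between 5.40e-06 and 0.00188. Nampt and Nnmt, of NAD and nicotinamide metabolism, rose from 39.9, 36.8 and 129 to 291, 256 and 244 CPM and from 107, 315 and 91.7 to 963, 538 and 496 CPM. For Nampt and Nnmt the log2 fold changes were 1.94 (SE 0.46, and 2.78 without untreated replicate 3) and 1.96 (SE 0.50, and 2.72 without untreated replicate 2), with adjusted p between 0.00952 and 0.0128. Ass1 (1606, 3622 and 1871 CPM untreated and 2839.9, 1736 and 1966 CPM after LPS) and Tdo2 (965, 1671 and 1089 CPM untreated and 784, 1119 and 1136 CPM after LPS), enzymes of arginine synthesis and tryptophan breakdown, were not called.

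With TMM scaling the stress lists held more higher than lower genes. In the unfolded protein and integrated stress list 12 rose and 4 fell of 25 tested members, at a median of 1.01 (10 rose and 5 fell with library totals). Xbp1, the factor of the IRE1 arm, measured 84, 139.6 and 159 CPM untreated and 516, 671 and 696 CPM after LPS. Atf4, the factor of the integrated stress response, measured 63, 60.2 and 65.1 CPM untreated and 207, 174 and 153 CPM after LPS. Hspa5 (BiP) and Creld2, in the endoplasmic reticulum, measured 316, 687 and 231 CPM untreated and 912, 2672 and 1608 CPM after LPS, and 13.7, 29 and 15.1 CPM untreated and 82.6, 415 and 208 CPM after LPS. LPS replicate 2 had the highest level of both chaperone genes. For Xbp1, Atf4, Hspa5 and Creld2 the log2 fold changes were 2.3 (SE 0.29), 1.51 (SE 0.19), 2.07 (SE 0.51) and 3.61 (SE 0.58, and 2.92 without LPS replicate 2), with adjusted p between 0.000405 and 0.0106. Sesn2 and Trib3, targets of ATF4, went the other way, from 23, 16.2 and 7.99 to 2.32, 1.22 and 1.01 CPM and from 11.5, 13.4 and 4.78 to 3.32, 2.11 and 2.47 CPM. For Sesn2 and Trib3 the log2 fold changes were -3.37 (SE 0.46) and -1.91 (SE 0.40), with adjusted p between 0.000607 and 0.00507. In the heat shock list 9 rose and 0 fell of 18 tested members (4 rose and 1 fell with library totals, and 5 rose without LPS replicate 2), led by Bag3, a co-chaperone, from 11.1, 14 and 14.8 to 113, 173 and 124 CPM. In the NRF2 and redox list 12 rose and 2 fell of 23 tested members (8 rose and 4 fell with library totals). Sod2, the mitochondrial superoxide dismutase and a known NF-kB target, rose from 118, 156 and 188 to 509, 534 and 535 CPM. Nqo1, a standard NRF2 target, was not called (8.24, 10.6 and 9.25 CPM untreated and 8.15, 7.71 and 12.5 CPM after LPS), and Gclc, of glutathione synthesis and another, fell from 102, 113 and 131 to 67.4, 57.5 and 60.4 CPM. For Bag3, Sod2 and Gclc the log2 fold changes were 3.36 (SE 0.24), 1.77 (SE 0.23) and -0.90 (SE 0.18), with adjusted p between 1.71e-05 and 0.00416.

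Genes linked to p53, growth arrest and cell death were raised in greater number than lowered. Of the growth arrest list 11 rose and 5 fell of 21 tested members (8 rose and 6 fell with library totals). Tob1, an antiproliferative factor, measured 197, 151 and 127 CPM untreated and 3.64, 2.05 and 1.96 CPM after LPS. Gadd45b and Gadd45g, stress sensors, measured 7.01, 7.42 and 4.34 CPM untreated and 153, 71.5 and 98.7 CPM after LPS, and 105, 149.8 and 31.1 CPM untreated and 865, 618 and 705 CPM after LPS. Pim1, a survival kinase gene, measured 12.1, 14.7 and 23.1 CPM untreated and 175, 159.6 and 163 CPM after LPS. Tob1 was lower and the rest were higher in every LPS liver. For Tob1, Gadd45b, Gadd45g and Pim1 the log2 fold changes were -5.95 (SE 0.33), 4.1 (SE 0.35), 2.93 (SE 0.51) and 3.32 (SE 0.27), with adjusted p between 6.52e-06 and 0.00212. Among the cell death genes 20 rose and 4 fell of 34 tested members (18 rose and 7 fell with library totals). Mlkl, the effector of necroptosis, and Gsdmd, the effector of pyroptosis, measured 5.92, 3.89 and 4.95 CPM untreated and 77.7, 74.6 and 73 CPM after LPS, and 20.9, 25.7 and 17.8 CPM untreated and 183, 94.4 and 107 CPM after LPS. Casp4, the sensor of cytosolic LPS, measured 1.32, 1.76 and 2.04 CPM untreated and 62.4, 31.8 and 33.7 CPM after LPS. Cflar, an inhibitor of caspase-8, measured 81.1, 76.8 and 84.4 CPM untreated and 174, 222 and 197 CPM after LPS. All rose without overlap. For Mlkl, Gsdmd, Casp4 and Cflar the log2 fold changes were 3.93 (SE 0.21), 2.58 (SE 0.29), 4.63 (SE 0.34) and 1.29 (SE 0.19), with adjusted p between 5.41e-06 and 0.000795. Within apoptosis, Casp8 of the death receptor pathway rose from 24.3, 23.9 and 37.4 to 70.2, 83.5 and 101 CPM while Casp9 of the mitochondrial pathway fell from 12.9, 15.2 and 15.8 to 2.07, 3.16 and 4.62 CPM, and the death-promoting BH3 genes Bbc3 and Bik fell from 13.2, 21.8 and 7.9 to 2.45, 2.22 and 2.78 CPM and from 7.05, 7.65 and 3.39 to 1.57, 0.777 and 2.21 CPM. For Casp8, Casp9, Bbc3 and Bik the log2 fold changes were 1.57 (SE 0.24), -2.15 (SE 0.29), -2.53 (SE 0.37) and -1.99 (SE 0.45), with adjusted p between 0.000597 and 0.00726. Ripk3, the kinase that activates MLKL, was not called at 0.91, 0.742 and 1.39 CPM untreated and 1.32, 2.5 and 1.58 CPM after LPS.

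Ribosome biogenesis and proteasome genes were called higher more often than lower. Of ribosome biogenesis factors 20 rose and 0 fell of 34 tested members, at a median of 0.98 (16 rose and 1 fell with library totals). Heatr1, of ribosomal RNA transcription, measured 13.2, 14.8 and 11.3 CPM untreated and 166, 142 and 143 CPM after LPS, and Nop58, of RNA modification, measured 22.8, 18.6 and 13.9 CPM untreated and 129, 130.3 and 137 CPM after LPS. For Heatr1 and Nop58 the log2 fold changes were 3.52 (SE 0.20) and 2.84 (SE 0.22), with adjusted p between 6.81e-06 and 2.78e-05. Ncl, nucleolin, was not called (191, 183 and 177 CPM untreated and 215, 190.1 and 174 CPM after LPS). Of constitutive proteasome and ubiquitin genes 19 rose and 0 fell of 27 tested members, at a median of 0.87, and 9 rose and 1 fell with library totals alone, at a median of 0.44. Psma1 and Psma7, core subunits, went from 57, 75.1 and 67.8 to 132, 172 and 159 CPM and from 91.2, 110.4 and 81.1 to 189, 226 and 235 CPM. For Psma1 and Psma7 the log2 fold changes were 1.21 (SE 0.20) and 1.2 (SE 0.20), with adjusted p between 0.00154 and 0.00188.

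Chromatin and transcription regulators were divided (11 rose and 10 fell of 32 tested members, against 6 and 15 with library totals). Lower calls depended on single livers and went from 10 to 5 without LPS replicate 3 and to 6 without LPS replicate 2. Kdm6b, a histone demethylase induced in macrophages, measured 21.3, 17.6 and 18.8 CPM untreated and 61.7, 42.8 and 36.7 CPM after LPS. Bcor, a corepressor, measured 15.6, 16.5 and 9.64 CPM untreated and 41.8, 42.1 and 47.6 CPM after LPS. Sirt3, a mitochondrial deacetylase, measured 74.6, 79.3 and 89.2 CPM untreated and 16, 24.9 and 26.2 CPM after LPS. Hdac7, an endothelial deacetylase, measured 7.28, 4.96 and 7.73 CPM untreated and 2.19, 1.05 and 1.33 CPM after LPS. The first 2 were higher and the last 2 lower in every LPS liver. For Kdm6b, Bcor, Sirt3 and Hdac7 the log2 fold changes were 1.29 (SE 0.22), 1.66 (SE 0.23), -1.86 (SE 0.22) and -2.13 (SE 0.34), with adjusted p between 0.000293 and 0.0020.

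The shares of genes that rose and fell differed by the size and structure of the genes. Spans and exon numbers were compared among protein-coding genes only. Of those that span under 5 kb in the genome 35.2% rose and 15% fell. Of genes of 20 to 50 kb 20.2% rose and 24.7% fell, and of genes of at least 100 kb 16.2% rose and 25.3% fell. Between those, the shares were 26.1% and 19.5% at 5 to 20 kb, and 19.4% and 29.9% at 50 to 100 kb. Library totals lowered the higher shares and raised the lower ones, to 20.7% and 25.9% under 5 kb and 9.61% and 44.8% at 100 kb or more, and kept the difference between short and long genes. At least 4-fold changes were commoner in genes of 2 exons, 15.2% higher and 14.5% lower, than in genes of at least 20 exons, 5.44% and 3.19%. Cytosolic ribosomal protein genes are short: 69 of 84 rose and 0 fell at a median of 0.92, against 26 with library totals and 54 without LPS replicate 1, and their share of counts was 1.6% to 1.74% untreated and 1.97% to 2.63% after LPS. Mitochondrial ribosomal protein genes followed with 31 of 79 higher and 0 lower, which turned to 7 higher and 9 lower with library totals. Genes of mitochondrial complex I (Nduf) followed with 23 of 49 higher and 2 lower, and 9 and 3 with library totals. Zinc finger genes named Zfp went the other way, with 35 of 287 higher and 112 lower at a median of -0.49, and F-box genes likewise, with 8 of 47 higher and 19 lower. Trim genes, many of them interferon-inducible, had 21 of 42 higher and 10 lower. Members of a class share length and sequence and are not independent, and the part of length, RNA stability or library preparation in this pattern was not tested.

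**Figure D5:**
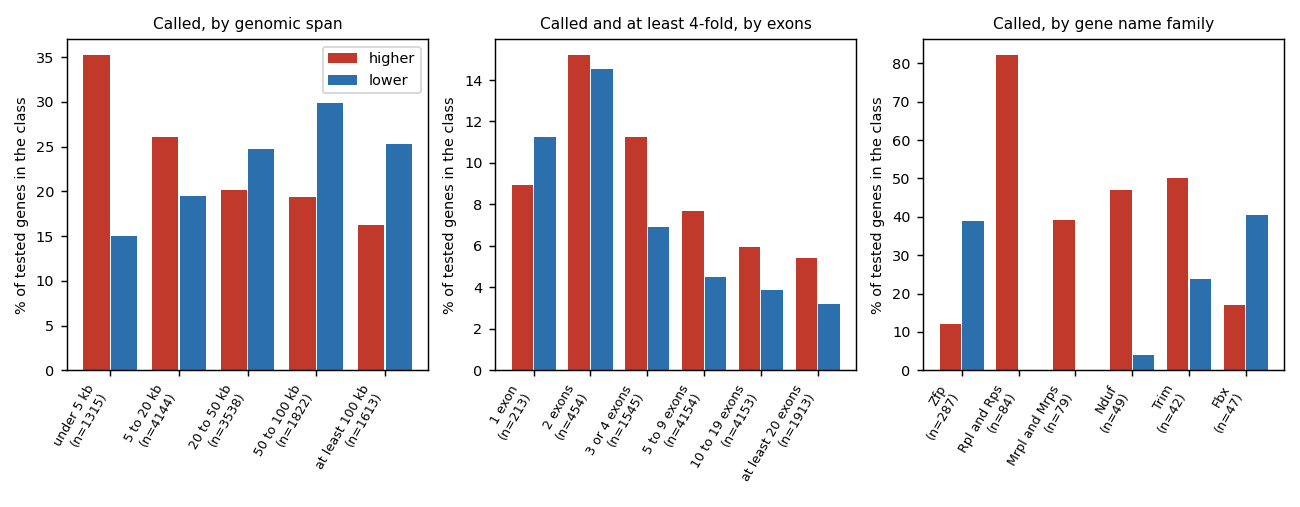
Share of tested genes (percent, bars from 0) called higher and lower, by genomic span (left), called at least 4-fold by number of exons (middle), and by gene family (right). The left and middle panels hold protein-coding genes only. The share called higher goes from 35.2% under 5 kb to 16.2% at 100 kb and above, and the Rpl and Rps family has 0 genes called lower.

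Clock genes fell more than they rose, 1 rose and 8 fell of 17 tested members, at a median of -0.93, and untreated replicate 3 stood apart from the other 5 livers in several of them. Per3 measured 0.774, 0.788 and 45.5 CPM untreated and 0.376, 0.61 and 0.127 CPM after LPS, and Arntl, whose daily rhythm is known to run opposite to that of Per3, measured 26.7, 31.8 and 1.17 CPM untreated and 20.1, 15.3 and 15.5 CPM after LPS. Dbp, an output gene of the clock, had 8, 9 and 1906 counts untreated and 4, 6 and 5 after LPS, and did not pass the filter. That liver was the highest for Per3 and Dbp and the lowest for Arntl. For Per3 and Arntl the log2 fold changes were -5.35 (SE 1.68, a call lost without untreated replicate 3 (adjusted p = 0.202), LPS replicate 1 (0.0993), LPS replicate 2 (0.0646) or LPS replicate 3 (0.0889), in DESeq2 and with the replicate block) and -0.23 (SE 0.80), with adjusted p between 0.0297 and 0.835. Nr1d1 (REV-ERB alpha) and Cry2, clock repressors, were low in every LPS liver and did not depend on that liver, at 12.7, 14 and 16.4 CPM untreated and 0.564, 0.277 and 0.443 CPM after LPS, and 15.3, 22.6 and 36.6 CPM untreated and 1.38, 1.22 and 1.33 CPM after LPS. For Nr1d1 and Cry2 the log2 fold changes were -5.06 (SE 0.30) and -4.24 (SE 0.36), with adjusted p between 8.18e-06 and 4.27e-05. The number of clock genes that fell depended on single libraries and went from 8 to 4 without LPS replicate 2 or LPS replicate 3 and to 5 without LPS replicate 1, and it was 6 without untreated replicate 3 and 4 with the replicate block. Other genes that are known to follow the time of day or feeding were also set apart there, such as Alas1 (204, 199.5 and 947 CPM untreated and 153, 185 and 240.2 CPM after LPS), Insig2 (602, 426 and 76.2 CPM untreated and 187, 225 and 226 CPM after LPS) and Cyp2a4 (246, 213 and 1925 CPM untreated and 182, 129 and 144 CPM after LPS). The sources used here do not give the time of sampling, and its part in these values was not tested.

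Of non-coding RNA genes known by name, 6 rose and 2 fell of 15 tested members (40% and 13.3%), and 2 rose with library totals. Higher calls depended on single livers and went from 6 to 3 without untreated replicate 2, LPS replicate 2 or LPS replicate 3. Mir155hg, the host transcript of miR-155, a microRNA induced through NF-kB in macrophages, had 1 count untreated and 249 after LPS, with 8.65, 3.99 and 2.47 CPM and a count ratio of 333 (95% counting interval 59.2 to 13207), and the untreated count came from replicate 1. The microRNAs themselves were not measured. Their mature sequences (RefSeq, GRCm38.p6, plus strand) are printed with the seed, bases 2 to 8, in capitals, because the host transcript was the only microRNA host among the non-coding genes with the largest changes.
mmu-miR-155-5p, chr16:84714143-84714165: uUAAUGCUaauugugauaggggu
mmu-miR-155-3p, chr16:84714182-84714202: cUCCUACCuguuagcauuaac

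Malat1 was not called (495, 286 and 330.4 CPM untreated and 326, 398 and 442 CPM after LPS), and Neat1, which has an untreated range of 37.4 to 389 CPM, was not either. Snhg15, a host of small nucleolar RNA, rose from 2.64, 1.25 and 1.3 to 11.1, 6.21 and 7.34 CPM. For Snhg15 the log2 fold change was 2.24 (SE 0.37), with adjusted p = 0.00174. Of genes that are not annotated as protein-coding, the largest rise was that of the intergenic RNA Gm35028 on chromosome 10, with 1 count untreated and 372 after LPS (count ratio 498 (95% counting interval 88.8 to 19705)), the former in replicate 1. Also among the 5 largest rises, beside Mir155hg, were Cxcl11, Gbp11 and Mx2, which the annotation calls polymorphic pseudogenes, that is, genes with an intact reading frame in some strains only. Gbp11 measured 4.28, 3.85 and 5.73 CPM untreated and 1201, 1193 and 1292 CPM after LPS, Mx2 measured 5.6, 7.14 and 2.47 CPM untreated and 1487, 764 and 899 CPM after LPS, and Cxcl11 measured 1.18, 1.81 and 0.434 CPM untreated and 429, 237 and 255 CPM after LPS. Their transcripts were thus abundant in LPS livers whatever they encode. For Gbp11, Mx2 and Cxcl11 the log2 fold changes were 8.05 (SE 0.31), 7.69 (SE 0.53) and 8.07 (SE 0.55), with adjusted p between 1.52e-06 and 1.48e-05. Among those that fell were Gm45044 and Gm32540, neighbouring intergenic RNAs on chromosome 8 with 26.1, 8.39 and 2.04 CPM untreated and 0.627, 0.333 and 1.2 CPM after LPS, and 12, 6.91 and 0.999 CPM untreated and 0.376, 0.0555 and 0.886 CPM after LPS. Both had their highest level in untreated replicate 1 and their lowest untreated level in replicate 3.

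Markers of cell types were followed because cells can enter or leave the liver. The summed level of 10 hepatocyte markers was 89456 to 133084 CPM untreated and 77536 to 116996 CPM after LPS, so the labelled tissue carried its defining transcripts in every library. Neutrophil markers rose in number, with 12 higher and 1 lower of 14 tested members, and the one that fell was G0s2. Leaving out G0s2 and Lcn2, which hepatocytes also express, 11 of 12 tested markers (of 15 listed) rose, and their sum was 4.0 to 9.42 CPM untreated and 235 to 331 CPM after LPS. S100a8, a major protein of neutrophils, measured 0.364, 0.742 and 1.3 CPM untreated and 75.5, 99.4 and 67.9 CPM after LPS. Ly6g, the defining surface marker, had 0 counts untreated and 33 after LPS. Of the monocyte list, 7 rose and 1 fell of 9 tested members, while their sum did not rise (1135 to 1437 CPM untreated and 893 to 1406 CPM after LPS), most of it from Fn1, which hepatocytes also express. Of those that rose, Vcan went from 0.137, 0.139 and 0.0868 to 7.46, 4.72 and 3.54 CPM. Of the T and NK cell markers, 5 rose and 0 fell of 15 tested members, or 3 with library totals, and they summed to 7.55 to 13.3 CPM untreated and 23.3 to 38.6 CPM after LPS. Higher calls in this list numbered 3 without LPS replicate 1 and also without either untreated replicate 1 or 3. One that rose was Gzmb, a granule protease, from 0.592, 0.556 and 1.04 to 12.5, 8.43 and 9.24 CPM. For S100a8, Vcan and Gzmb the log2 fold changes were 6.64 (SE 0.41), 5.37 (SE 0.47) and 3.77 (SE 0.33), with adjusted p between 9.08e-06 and 5.52e-05. Markers of erythroid cells and platelets rose as well (8 rose and 0 fell of 9 tested members), and their sum was 162 to 279 CPM untreated and 577 to 1052 CPM after LPS. The alpha and beta globin genes in it have near-identical copies. Cxcr2, Csf3r and Il1r2 are themselves members of the neutrophil list and are not separate from its count and sum. Clec4d and Clec4e, which neutrophils also express, are outside that list and rose. The part of incoming cells in the chemokine, cytokine and receptor results was not tested.

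Few Kupffer cell markers passed the test. Of 12, 1 rose and 2 fell, and their sum was 449 to 514 CPM untreated and 195 to 498 CPM after LPS. The lowest sum was that of LPS replicate 1, where Clec4f, a defining marker, was at 29.5 CPM against 84.1 to 108 CPM in the other 5 livers, and Vsig4, another, was at 2.95 CPM against 18.8 to 28.8 CPM. Marco, a scavenger receptor, rose from 7.28, 11.9 and 5.73 to 35.5, 65.6 and 43.7 CPM, and Cd163, the haemoglobin receptor, fell from 20.1, 18 and 16.8 to 1.94, 6.27 and 6.58 CPM. For Marco and Cd163 the log2 fold changes were 2.54 (SE 0.33) and -1.89 (SE 0.39), with adjusted p between 0.00047 and 0.00474. Stellate cell and fibroblast markers summed to 412 to 498 CPM untreated and 347 to 581 CPM after LPS. Of 12 tested members 0 rose and 3 fell (25%, beside 22.1% of all tested genes), and 9 were not called. Among those that fell were Lrat, the enzyme of retinol storage, and Hand2, a factor of these cells. Both were lower in every LPS liver, from 17.1, 15.1 and 25.6 to 5.96, 4.66 and 3.8 CPM and from 6.92, 7.55 and 5.3 to 0.125, 0.277 and 0.127 CPM. For Lrat and Hand2 the log2 fold changes were -2.0 (SE 0.27) and -5.15 (SE 0.40), with adjusted p between 2.53e-05 and 0.000576. Cholangiocyte markers summed to 34.5 to 91.6 CPM untreated and 101 to 105 CPM after LPS (3 of 8 rose, and 6 without untreated replicate 3). Sox9, which hepatocytes can also induce, went from 4.1, 3.89 and 4.21 to 20.9, 28 and 22.5 CPM. Krt19, a defining marker, was at 0.742 to 1.84 CPM in 5 livers and at 15.5 CPM in LPS replicate 1. Krt19 is also a marker of mesothelium, whose 6 markers summed to 20.1 CPM in that library, most of it Krt19 itself, 1.89 to 2.97 CPM in the other LPS livers and 3.62 to 7.24 CPM untreated. The sum of the cholangiocyte markers did not stand apart there, and the part of these cells in the results was not tested. The 11 pancreas and gut markers summed to 66.8 to 132 CPM untreated and 156 to 180.5 CPM after LPS, most of it from Fabp2, a fatty acid binding protein (127, 68.5 and 57.8 CPM untreated and 146, 147 and 173 CPM after LPS) and the only member called higher. That call was lost with library totals alone, without untreated replicate 3 and without LPS replicate 1. The pancreatic genes Prss2, Cela3b, Pnlip and Amy2a5 had 0 counts untreated and 1, 1, 4 and 0 counts after LPS, and Ctrb1 had 2 and 21, all 21 in LPS replicate 1.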

How the data were processed

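The deposited values of the 6 liver libraries were raw counts of reads for each Ensembl gene ID, as whole numbers, per the file headers. STAR, featureCounts 1.6.3 and mm10 are named in the submitters' processing notes. The sources used here do not give the annotation release, the use of strand or the treatment of multi-mapping reads, so reads of overlapping, antisense or near-identical genes could be split or shared. Symbols and coordinates (GENCODE M21, GRCm38) matched 49326 of 49585 IDs.

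Liver was fitted alone in edgeR 4.0.16 (R 4.3.3, limma 3.58.1) with the group as the sole factor, filterByExpr, TMM scaling and the 2-sided quasi-likelihood test. A gene was called at a Benjamini-Hochberg adjusted p under 0.05 over the 13869 genes tested. Log2 fold changes are LPS minus untreated, and the standard error (SE) is the size of that change over the root of its F statistic. Against a group with 0 counts the fold is a bound from a floor of 3 counts over the group, and with 1 to 3 counts it is the ratio with a 95% interval, both covering counting error only. Depth was 17322770 to 20913964 counts per library. On simulated counts for 13208 genes of this comparison, with 100 genes changed at each size, the fit recovered 27% of 2-fold and 96% of 4-fold changes, with 4 false calls among 127.

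The comparison and the gene lists were chosen with earlier results of these data known. Named genes were the key members of each list whatever their result, up to 4 further called members in each direction by size, the extremes by fold and by level per kb, the extremes among genes not coding for protein, and genes in runs of neighbours. Chuk, Ass1, Tdo2, Insig1, Fn1, Ctrb1 and the 20 genes at least 16-fold higher and above 1000 CPM were chosen after their values were seen. DESeq2 1.42.0, other scalings and filters, a replicate block, the removal of each library and a fit with all 12 libraries were run as alternatives. The macrophage libraries entered the last-named fit and no other. Some members of these lists are counted in them but not reported here by name.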

Additional observations from a re-analysis of the deposited data

How the results depend on the processing

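No gene called here was called in the opposite direction under any of the 13 alternatives. Scaling by library totals alone moved the counts most, to 1943 genes higher and 5305 lower against 3227 and 3060, because it shifts the median of all genes. In edgeR with DESeq2 size factors 6283 genes were called, in the DESeq2 Wald test 6463, without a filter on low counts 6816 of 24918 tested, with a filter of 1 CPM in 3 libraries 5932, and with all 12 libraries in 1 fit 6850, against 6287. With 1 library left out the count was 4865 to 6227 (2651 to 3237 higher and 2187 to 2990 lower). Runs of neighbours numbered 29 higher and 4 lower when at least 5 genes were required in place of 4. Deviations of libraries with the same replicate number gave r across genes of 0.118, 0.0498 and -0.0766. Pairs with different numbers gave -0.186 to 0.123. With 3 libraries a group, these values cannot decide whether libraries were paired by replicate number. With that number as a replicate block 5754 genes were called, 3002 higher and 2752 lower. Of 785 called genes among those named by the rule, 641 stayed called under every alternative, 144 were lost under at least 1, and 120 of these when 1 library was left out. In the simulated counts, with 100 genes changed at each size, 27% of 2-fold changes were recovered. As 6287 genes were called here, the same p-value gives a lower adjusted p, so that share does not carry over to these data. At this depth and 3 libraries a group, some 2-fold changes may still be missed.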
